A study of Mus musculus with 16 samples.

Results

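The liver response to a high-fat diet (HFD) was measured by RNA sequencing in mice that had received saline only. The comparison held 8 of the 16 libraries of the series, 4 from mice on HFD and 4 from mice on chow, chosen by their diet and treatment labels and not by any measured value. All mice were male C57BL6/J, entered the study at 6 weeks of age and ate their diet for 12 weeks. They were injected under the skin every 2 weeks with 0.9% sodium chloride. The other 8 libraries came from mice on the same diets whose injections held an siRNA against *Fgfr4* at 3 mg/kg (Chow/FGFR4 KD and HFD/FGFR4 KD, where KD is knockdown). The siRNA carried N-acetylgalactosamine, a sugar that takes it into hepatocytes. The saline mice received no control siRNA. Each library was from the whole liver tissue of a separate mouse, so cell types were mixed. Mice lived 4 to a cage, and the sources used here give neither which libraries shared a cage nor the hour of day or the feeding state at which livers were taken. Replicates 1 to 4 of the saline groups are called Chow 1 to 4 and HFD 1 to 4, and where 4 levels are given for a diet they stand in that order.

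The liver takes up dietary and adipose fatty acids, burns them in mitochondria and peroxisomes, turns some of the product into ketone bodies, and stores or exports the rest as triglyceride. It also makes glucose, bile acids, urea and most plasma proteins, and it holds the cytochrome P450 enzymes that oxidise drugs and steroids. In male mice, pulses of growth hormone acting through STAT5B keep a set of male-biased genes high. On a diet rich in fat, mice become obese and store lipid in hepatocytes, and the resident macrophages of the liver, the Kupffer cells, clear lipid and debris. A molecular clock built on CLOCK and BMAL1 (gene *Arntl*) drives a daily rhythm in many of these genes, and meals can shift it.

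Total estimated counts of the 8 libraries ran from 4575975 to 5976449. A single transcript, Gm42418, took 13.4 to 22.7% of counts on chow and 11.1 to 15.6% on HFD, and the scaling factors of TMM (trimmed mean of M-values) were 0.836 to 1.03 on chow and 1.05 to 1.17 on HFD. Levels are given as CPM, which are read counts scaled to a common library size with these factors, and changes as log2 of HFD over chow from limma-voom. The HFD libraries fell into pairs. By chi-square of the counts over its degrees of freedom, HFD 1 and HFD 3 differed by 11.4 and HFD 2 and HFD 4 by 11.7. Values between the pairs ran from 34.7 to 58.9. Chow pairs gave 14.1 to 46.7. The HFD pairs were seen in these counts, so genes that differ between them are not independent evidence of the pairs. The pairs could not be tied to a cage, a day or a batch from the labels, and the counts of gene lists are given also without HFD 1 and HFD 3, a fit that keeps 2 HFD libraries.

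The diet changed a broad part of the liver transcriptome. Of 11324 genes tested, 1042 (9.2%) passed an adjusted p under 0.05, of which 515 (4.55%) were higher and 527 (4.65%) lower on HFD. At the looser threshold that the study used, p under 0.05 with an adjusted p under 0.25, 2939 genes (26%) passed, 1506 higher (13.3%) and 1433 lower (12.7%). The 4 HFD libraries did not overlap the 4 chow libraries in 1822 genes (16.1%), and in 940 of the 1042 (90.2%). Among the 1042 genes, 307 differed by more than 2-fold (179 higher and 128 lower), and the genes that moved by over 8-fold were mostly those that fell (23 lower, 8 higher). The share of higher genes depended on scaling. With library totals alone 2340 genes passed. Of these 92.6% were higher, where TMM gave 49.4%, and the median of all genes moved from 0.0070 to 0.287. Medians of gene lists below are relative to TMM scaling. The words rose and fell are kept for genes at an adjusted p under 0.05. Without HFD 1 and HFD 3 the fit passed 247 genes, and without HFD 2 and HFD 4 it passed 1188. Single libraries left out gave 597 (without HFD 3) to 1197 (without HFD 2) genes, with 608 without Chow 1, 628 without Chow 2 and 689 without HFD 1.

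**Figure D1:**
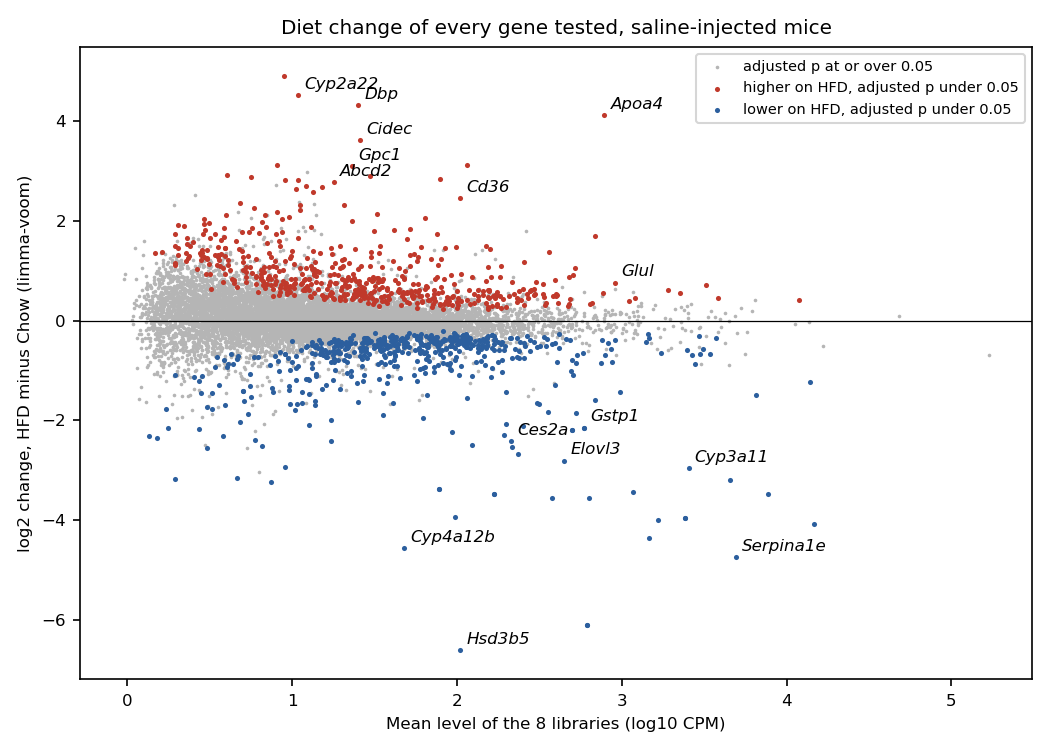
Each point is 1 of the 11324 genes tested, with the mean level of the 8 saline libraries on the horizontal axis (log10 CPM) and the log2 change, HFD minus Chow, on the vertical axis. Red and blue points are the 515 genes that rose and the 527 that fell at a limma-voom adjusted p under 0.05, and changes of over 8-fold are more common below zero (23 genes, *Hsd3b5* and *Serpina1e* among them) than above it (8 genes).

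The diets were well separated in *Gpc1*, *Apoa4*, *Ces2a* and *Elovl3*, markers chosen with earlier results of these data known. *Gpc1* (ENSMUSG00000034220; chromosome 1, 92831645 to 92860779) encodes glypican 1, a heparan sulfate proteoglycan of the cell surface. It stood at 5.54, 3.65, 5.48 and 4.02 CPM on chow and 43.9, 34.8, 49.1 and 36.9 CPM on HFD. Every HFD library lay above every chow library, and the mean was 8.82-fold higher (4.67 ± 0.9752 CPM on chow and 41.2 ± 6.53 CPM on HFD; SD, n = 4; log2 change 3.10, SE 0.33, limma-voom adjusted p = 0.000103). *Apoa4* (ENSMUSG00000032080; chromosome 9, 46240696 to 46243459) encodes apolipoprotein A-IV, carried on triglyceride-rich lipoproteins and HDL. It was at 66.8, 61.3, 71.8 and 70.5 CPM on chow and 1699.6, 417, 2970.0 and 908 CPM on HFD. The chow libraries were close together, whereas HFD 3 was highest and HFD 2 lowest within a wide HFD group that did not reach down to chow (log2 change 4.12, SE 0.53, limma-voom adjusted p = 0.000498). Of the 31-base words of its transcripts, 64.5% also occur in other genes, which makes its count less certain.

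*Ces2a* (ENSMUSG00000055730; chromosome 8, 104734003 to 104741634) encodes a carboxylesterase of the endoplasmic reticulum that cleaves glycerides and ester drugs. Its levels were 364, 336, 349 and 380.4 CPM on chow and 67.0, 86.9, 47.1 and 73.4 CPM on HFD. The groups were far apart, and the mean was 5.21-fold lower on HFD (log2 change -2.42, SE 0.16, limma-voom adjusted p = 3.28e-07; 30.2% of its words are shared). *Elovl3* (ENSMUSG00000038754; chromosome 19, 46131897 to 46135694), an elongase of very long saturated fatty acids and a male-biased, clock-linked gene of the liver, was at 788, 651, 789 and 861 CPM on chow and 138, 177, 73.1 and 82.0 CPM on HFD. All HFD libraries were below all chow libraries, HFD 2 being the nearest (log2 change -2.80, SE 0.27, limma-voom adjusted p = 5.06e-05). These 4 calls held without any single library.

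**Figure D2:**
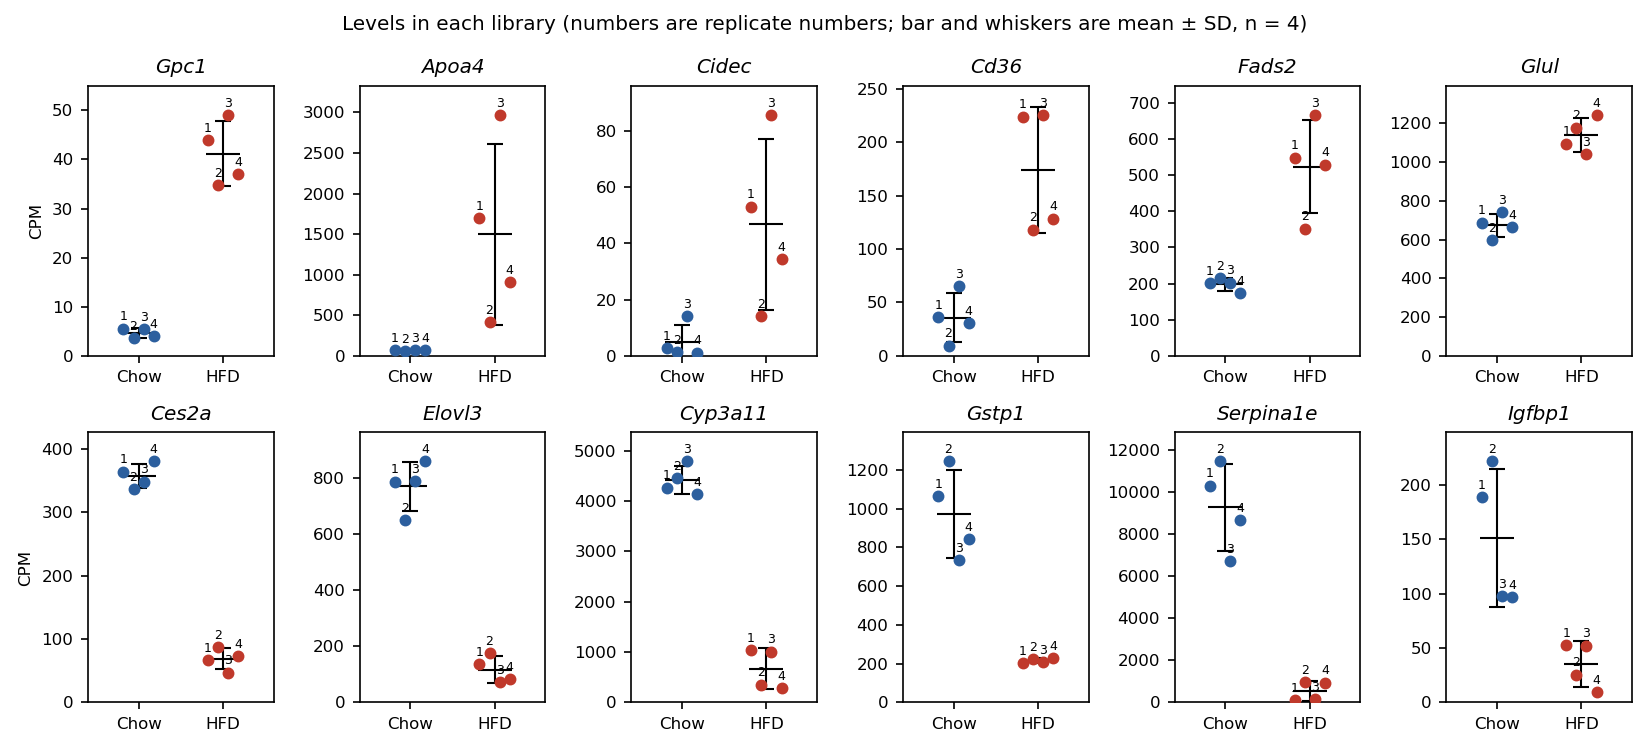
CPM of 12 genes in each library, with the replicate number above each point and bars for the mean ± SD (n = 4). In *Apoa4*, *Cidec* and *Cd36* the HFD libraries spread widely and HFD 1 and HFD 3 are the highest. In *Gpc1*, *Glul* and *Ces2a* they lie closer together.

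Behind these markers, the rising genes with the smallest p-values came from several functions. These genes and the leading falling genes were picked only among genes whose HFD and chow libraries did not overlap. Their lack of overlap is therefore a condition of the choice and not a finding, here and in their pathways below. *Serpina6*, which encodes the corticosteroid-binding globulin of plasma, was at 81.0, 81.7, 96.3 and 85.5 CPM on chow and 236, 233, 217 and 243 CPM on HFD, with no overlap between tight groups (log2 change 1.43, SE 0.16, limma-voom adjusted p = 0.000143). *Glul*, the glutamine synthetase of pericentral hepatocytes, was at 688, 599, 741 and 664 CPM on chow and 1095, 1177, 1042 and 1243 CPM on HFD. Chow and HFD did not overlap (log2 change 0.76, SE 0.10, limma-voom adjusted p = 0.000577; 20.4% of words shared). *Slc17a4*, a sodium-phosphate and urate transporter, rose from between 26.9 and 32.2 CPM on chow to between 58.8 and 92.2 CPM on HFD, and *Bche*, the plasma butyrylcholinesterase, from between 60.9 and 69.4 CPM on chow to between 102 and 129 CPM on HFD. *Agxt2*, a mitochondrial aminotransferase, had a log2 change of 0.62, and *Mat1a*, which makes S-adenosylmethionine, one of 0.62. *Inhbe*, the hepatokine subunit inhibin beta E, was at 30.3, 25.5, 31.8 and 34.5 CPM on chow and 76.9, 70.95, 110.4 and 57.9 CPM on HFD, with HFD 3 highest and no overlap (log2 change 1.34, SE 0.20, limma-voom adjusted p = 0.00106). The other leading genes were *Fads2*, *Ugp2*, *Bdh1*, *Plin4*, *Pcx* and *Csf1r*, which are taken up with their pathways.

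Among the leading falling genes, *Slco2a1* encodes a prostaglandin transporter and was at 101, 102, 82.7 and 112 CPM on chow and 26.1, 20.05, 25.8 and 31.1 CPM on HFD. The HFD values were all under those of chow (log2 change -1.96, SE 0.20, limma-voom adjusted p = 8.78e-05). *Gstp1*, a glutathione transferase higher in male than in female mouse liver, was at 1064, 1243, 734 and 841 CPM on chow and 201, 223, 209 and 229 CPM on HFD. Chow 1 and Chow 2 were the highest, and the HFD libraries lay within a narrow band (log2 change -2.14, SE 0.25, limma-voom adjusted p = 0.000143; 38.5% of words shared with other genes). *Hes6*, a helix-loop-helix repressor, fell from between 33.1 and 68.5 CPM on chow to between 17.1 and 21.2 CPM on HFD. *Carmil1*, an actin-capping regulator, fell from between 12.8 and 19.2 CPM on chow to between 5.65 and 6.90 CPM on HFD, and *Kyat1*, a kynurenine aminotransferase, from between 79.3 and 86.1 CPM on chow to between 44.8 and 53.9 CPM on HFD. *Rack1*, a scaffold on the small ribosomal subunit, had a log2 change of -0.54, and *Rpl22l1*, a paralog of a ribosomal protein, one of -0.83. The remaining leading genes belong to the P450, glucuronosyltransferase, ribosome, cholesterol and clock groups described in what follows.

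Lists of genes were set up for liver functions and cell types. For each, the counts of rising and falling members are read against the 9.2% of all genes that passed. Counts from a refit are to be read against all genes in that refit. Without HFD 1 and HFD 3, 132 of 11385 genes passed as higher and 115 as lower. Without HFD 2 and HFD 4, 684 of 11404 did as higher and 504 as lower. With library totals, 2166 of 11324 did as higher and 174 as lower. Fewer or more calls in a list can thus follow those of all genes. Shares near 9.2% are not read as a change of the list. Among these were MHC class I (12.5%), antioxidant enzymes (12.5%), dendritic cells (12.5%), cytoskeleton (10.5%) and growth hormone signalling (8.33%). The positions of list members on the log2 scale are shown in the plot of function lists.

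**Figure D3:**
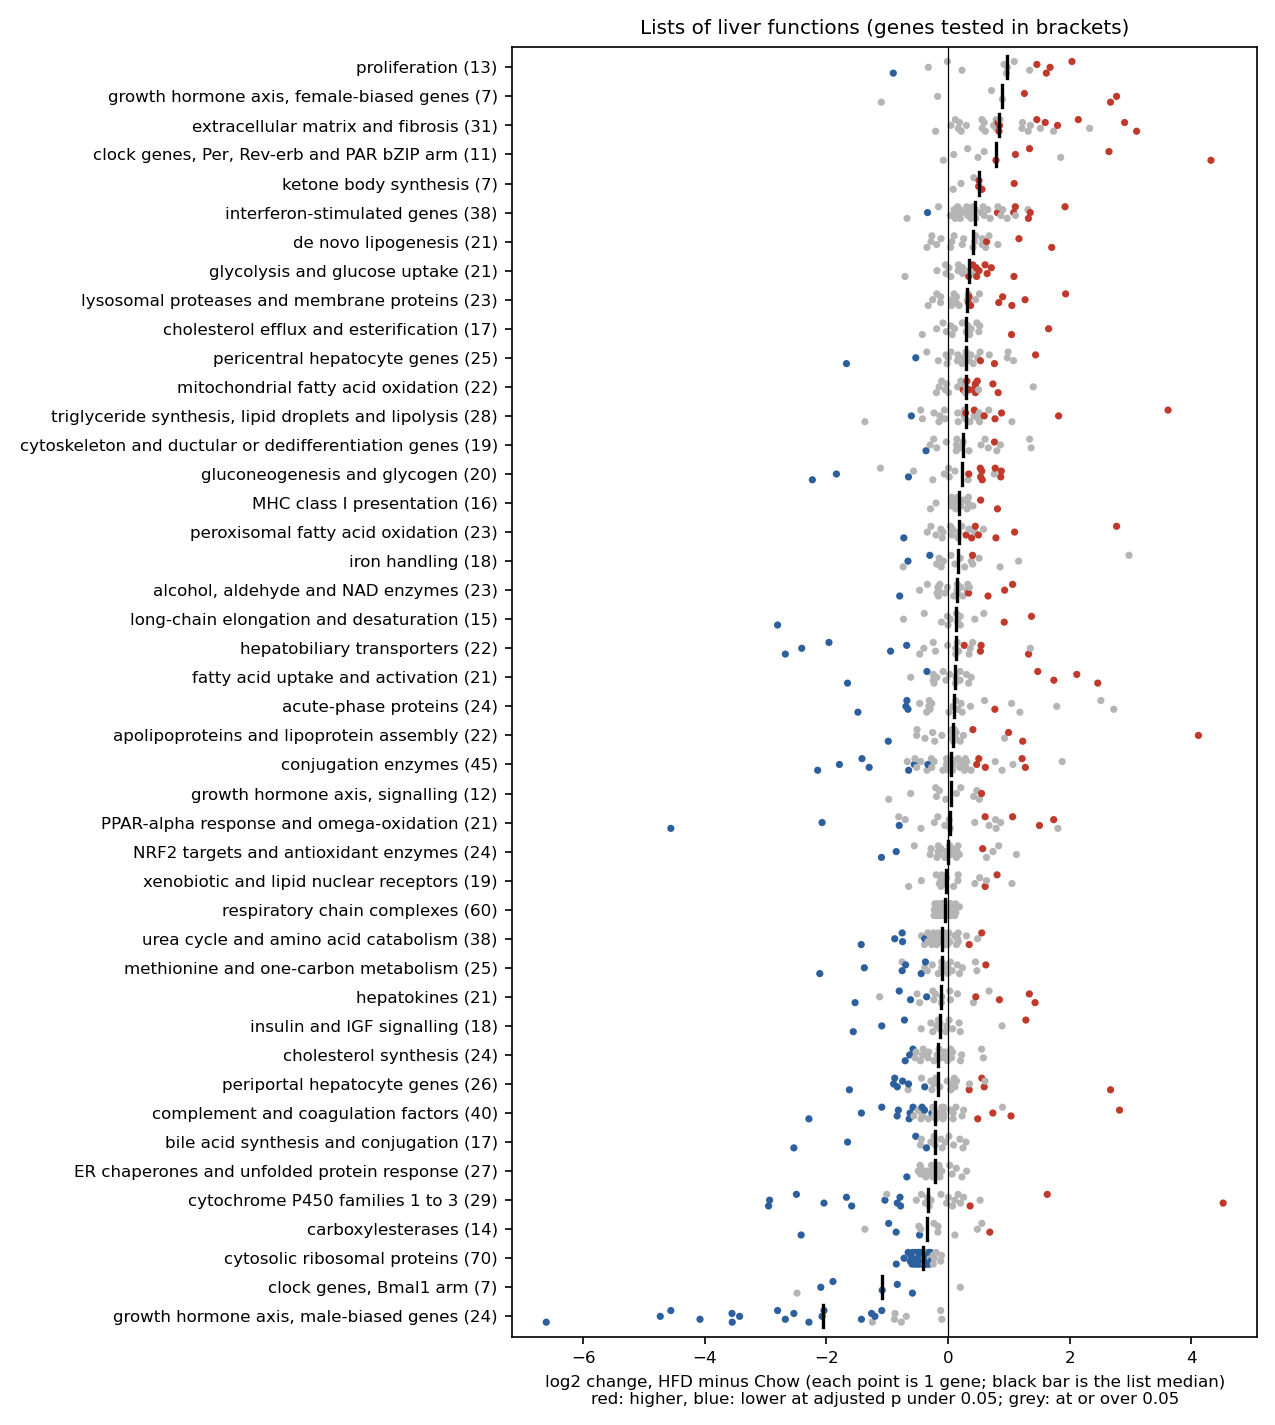
Log2 change, HFD minus Chow, of every tested member of the function lists, ordered by list median (black bar), with red for genes that rose, blue for genes that fell and grey for genes at an adjusted p of 0.05 or more. Male-biased genes (median -2.06), the Bmal1 arm of the clock (-1.08) and ribosomal proteins (-0.41) lie lowest, and proliferation (0.97) and extracellular matrix (0.84) are near the top.

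Genes of fatty acid oxidation in mitochondria rose at several steps and fell at none. Of 22 genes tested, 9 rose and 0 fell (40.9%), with a median log2 change of 0.29. *Cpt1a*, the carnitine palmitoyltransferase that lets long-chain fatty acids into mitochondria, was at 259, 333, 274 and 268.2 CPM on chow and 489, 462, 509 and 543 CPM on HFD. No HFD library overlapped chow, and HFD 4 was the highest (log2 change 0.82, SE 0.13, limma-voom adjusted p = 0.00174). *Hadh*, the short-chain hydroxyacyl-CoA dehydrogenase, was at 234, 206, 309 and 251.04 CPM on chow and 449, 384, 445 and 377 CPM on HFD, with Chow 3 the highest of its group (log2 change 0.74, SE 0.14, limma-voom adjusted p = 0.00465). The acyl-CoA dehydrogenases *Acadm* (0.48), *Acadl* (0.45) and *Acads* (0.35) and the dienoyl reductase *Decr1* (0.45) rose by smaller amounts. The very long-chain dehydrogenase *Acadvl* did not pass (294 to 342 CPM on chow and 297.4 to 324 CPM on HFD; log2 change -0.02), nor did *Acaa2*, the thiolase of the last step (-0.05), or *Hadha* (0.27). Counts of genes that passed ran from 3 (without Chow 1) to 9 with single libraries left out, and without HFD 1 and HFD 3 they were 1 higher and 0 lower at a median of 0.23.

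Ketone body synthesis, which follows oxidation in the mitochondrial matrix, had 4 rising and 0 falling genes of 7 (median 0.50). The ketogenic calls became 1 higher and 0 lower without HFD 1 and HFD 3. *Bdh1*, which reduces acetoacetate to hydroxybutyrate, was at 104, 107, 146 and 115 CPM on chow and 272, 248, 264 and 213 CPM on HFD. The HFD group was above chow without overlap (log2 change 1.09, SE 0.17, limma-voom adjusted p = 0.00129). *Acat1*, the acetoacetyl-CoA thiolase, rose too (0.50), whereas *Oxct1*, the enzyme of ketone use that hepatocytes lack, stayed low at 1.66 to 2.61 CPM on chow and 2.13 to 3.83 CPM on HFD. *Acat1* lost its call without Chow 1, Chow 2, Chow 4, HFD 1, HFD 2 or HFD 3, with an adjusted p of up to 0.106. With single libraries left out from 1 (without Chow 1) to 4 genes passed.

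Peroxisomes shorten very long and branched fatty acids. Here 7 of 23 tested genes rose and 1 fell (median 0.17), with counts from 3 (without Chow 1 or HFD 3) to 10 (without HFD 2) when single libraries were left out. The peroxisomal calls became 0 higher and 1 lower without HFD 1 and HFD 3 and 11 higher and 0 lower with library totals. The peroxisomal median ran from 0.11 (without Chow 2) to 0.25 (without Chow 3) with single libraries left out. *Abcd2*, an importer of acyl-CoA into peroxisomes and also a female-biased gene, was at 2.47, 2.11, 12.4 and 3.35 CPM on chow and 47.4, 16.7, 41.0 and 17.4 CPM on HFD. The libraries HFD 1 and HFD 3 had the highest *Abcd2* and Chow 3 came near the lower HFD libraries (log2 change 2.77, SE 0.79, limma-voom adjusted p = 0.037). Its call was lost without Chow 1, Chow 2, Chow 3, Chow 4, HFD 1 or HFD 3, with an adjusted p of up to 0.113. *Decr2* (0.50), *Ech1* (0.45), *Hsd17b4* (0.30), *Acot4* (1.09) and the import chaperone *Pex19* (0.39) rose. *Hacl1*, the lyase of alpha-oxidation, fell from between 264 and 309 CPM on chow to between 142 and 198 CPM on HFD (log2 change -0.73, SE 0.13, limma-voom adjusted p = 0.00393).

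Targets of PPAR-alpha, the receptor that senses fatty acids, moved in both directions. In the list of PPAR-alpha response and omega-oxidation, 4 of 21 genes rose and 3 fell (median 0.04). The PPAR-alpha calls became 0 higher and 2 lower without HFD 1 and HFD 3. The PPAR-alpha median ran from 0.012 (without Chow 1) to 0.084 (without Chow 3) with single libraries left out. *Ppara* itself was at 74.2, 103, 86.6 and 116 CPM on chow and 131, 137, 141 and 161 CPM on HFD, and all HFD libraries were above chow (log2 change 0.61, SE 0.14, limma-voom adjusted p = 0.0119). *Vnn1*, a pantetheinase, was at 25.01, 23.7, 64.7 and 32.9 CPM on chow and 127, 102, 138 and 91.9 CPM on HFD, with Chow 3 the highest chow library (log2 change 1.74, SE 0.32, limma-voom adjusted p = 0.00393). *Aldh3a2*, which oxidises fatty aldehydes, rose from between 294 and 457 CPM on chow to between 583 and 813 CPM on HFD, and *Ucp2*, a carrier of the inner mitochondrial membrane, from between 7.57 and 14.0 CPM on chow to between 20.2 and 39.4 CPM on HFD. *Cyp4a12a*, a male-biased omega-hydroxylase, was at 373, 334, 227 and 312 CPM on chow and 27.1, 127, 107 and 78.6 CPM on HFD. *Cyp4a12b* was at 116, 76.8, 59.4 and 91.6 CPM on chow and 0.443, 15.3, 1.87 and 18.1 CPM on HFD. Both fell in every HFD library, and HFD 1 and HFD 3 were nearly without *Cyp4a12b* (log2 changes -2.07 and -4.56), but 62.2% and 62.9% of their words are shared with related genes, so reads may be split between them. *Angptl4*, an inhibitor of lipoprotein lipase, fell from between 155 and 211 CPM on chow to between 86.0 and 133 CPM on HFD. The classical targets *Cyp4a10* (120.3 to 205 CPM on chow and 265 to 299 CPM on HFD; adjusted p = 0.211) and *Cyp4a14* (57.7 to 292 CPM on chow and 246 to 563 CPM on HFD; adjusted p = 0.229) had higher means and did not pass in limma-voom.

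Genes of fatty acid uptake and binding were split by family. Of 21 genes, 4 rose and 2 fell, and the count ran from 3 (without Chow 1) to 8 (without Chow 3) with single libraries left out. The uptake calls became 6 higher and 1 lower with library totals. The uptake median ran from 0.063 (without HFD 4) to 0.15 (without Chow 3) with single libraries left out. *Cd36*, the scavenger receptor that takes up fatty acids, was at 36.5, 9.65, 65.3 and 30.8 CPM on chow and 224, 118, 225 and 128 CPM on HFD. HFD 1 and HFD 3 were the highest and no chow library reached the lowest HFD library (log2 change 2.46, SE 0.48, limma-voom adjusted p = 0.00532). *Vldlr*, the VLDL receptor, rose from between 0.615 and 2.43 CPM on chow to between 3.92 and 9.65 CPM on HFD, and the binding proteins *Fabp2* from between 29.7 and 97.0 CPM on chow to between 121 and 163 CPM on HFD and *Fabp4* from between 2.87 and 3.79 CPM on chow to between 8.08 and 19.04 CPM on HFD. *Fabp5* was at 19.1, 25.8, 6.29 and 21.3 CPM on chow and 4.75, 4.41, 5.83 and 4.64 CPM on HFD. Chow 3 lay close to the HFD libraries, and the call (log2 change -1.65, SE 0.50, limma-voom adjusted p = 0.0474) was lost without Chow 1, Chow 2, Chow 4, HFD 1, HFD 2, HFD 3 or HFD 4, with an adjusted p of up to 0.111. The main hepatic binding protein *Fabp1* (2037 to 2519 CPM on chow and 2413 to 2856 CPM on HFD) and the activating enzyme *Acsl1* (1215 to 1341 CPM on chow and 837 to 1302 CPM on HFD) did not pass. The list median was 0.12, and -0.02 without HFD 1 and HFD 3, when 0 higher and 0 lower passed.

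The list of lipogenesis holds the synthesis of fatty acids from acetyl-CoA and steps that feed or follow it. It had 3 rising and 0 falling genes of 21 tested (median 0.41), and from 1 (without Chow 1) to 6 (without HFD 2) passed with single libraries left out. The lipogenic median ran from 0.15 (without HFD 1) to 0.69 (without HFD 2) with single libraries left out. In this list the HFD libraries did not move together. *Fasn*, the fatty acid synthase, was at 384, 217, 319 and 278 CPM on chow and 871, 209, 889 and 298 CPM on HFD. *Scd1*, the stearoyl-CoA desaturase, was at 3704, 3169, 6631 and 5909 CPM on chow and 11674, 1734, 13586 and 5259 CPM on HFD. In HFD 1 and HFD 3 the levels were above all chow libraries in both genes, whereas HFD 2 was below the chow range, and neither gene passed (adjusted p = 0.366 and 0.727, limma-voom). Without HFD 1 and HFD 3 the list median was -0.03 with 0 higher and 0 lower, and without HFD 2 and HFD 4 it was 0.73 with 9 higher and 0 lower. The genes that rose were *Elovl5*, at 249, 266, 357 and 383 CPM on chow and 1437, 649, 1406 and 781 CPM on HFD (log2 change 1.70, SE 0.37, limma-voom adjusted p = 0.0105), the glycolytic feeder *Pklr* (1.17) and the triokinase *Tkfc* (0.63). *Elovl5* extends polyunsaturated fatty acids, and its HFD libraries lay above chow in both pairs. None of the 3 genes that rose makes fatty acids from acetyl-CoA.

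Polyunsaturated fatty acid synthesis rose at its desaturases. *Fads2*, which catalyses the first desaturation, was at 201, 214, 203 and 173 CPM on chow and 548, 352, 667 and 529 CPM on HFD, with HFD 2 the lowest HFD library and no overlap (log2 change 1.37, SE 0.20, limma-voom adjusted p = 0.0009). *Fads1*, the next desaturase, was at 313, 337, 379.5 and 357 CPM on chow and 735, 463, 831 and 654 CPM on HFD (log2 change 0.92, SE 0.18, limma-voom adjusted p = 0.00465). In the whole list of elongation and desaturation 2 of 15 genes rose and 1, *Elovl3*, fell. The elongation calls became 1 higher and 1 lower without HFD 1 and HFD 3 and 5 higher and 1 lower with library totals. *Elovl2* (355 to 486 CPM on chow and 471 to 635 CPM on HFD; adjusted p = 0.0792) did not pass in limma-voom.

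Several genes of lipid droplets rose, some with a wide spread between mice. In the list of triglyceride synthesis, droplets and lipolysis 7 of 28 rose and 1 fell (median 0.29). The droplet calls became 2 higher and 0 lower without HFD 1 and HFD 3 and 16 higher and 0 lower with library totals. *Cidec*, which fuses droplets into larger ones, was at 2.87, 1.30, 14.2 and 1.18 CPM on chow and 53.0, 14.2, 85.7 and 34.3 CPM on HFD. HFD 3 was the highest and Chow 3 lay level with HFD 2, and the change (log2 change 3.62, SE 0.98, limma-voom adjusted p = 0.0281) lost its call without Chow 1, Chow 2, Chow 4 or HFD 1, with an adjusted p of up to 0.0892. *Plin4*, a droplet coat protein, was at 12.3, 25.04, 27.2 and 11.4 CPM on chow and 62.5, 49.4, 90.0 and 52.7 CPM on HFD. There was no overlap between diets (log2 change 1.82, SE 0.28, limma-voom adjusted p = 0.0013). *Plin3*, of the same family, rose from between 20.6 and 27.1 CPM on chow to between 34.6 and 51.5 CPM on HFD. *Mgll*, the lipase of monoglycerides, was at 116, 105, 163 and 129 CPM on chow and 269, 195, 283 and 198 CPM on HFD (log2 change 0.88, SE 0.17, limma-voom adjusted p = 0.00465). *Abhd5*, the co-activator of triglyceride lipase, fell from between 29.1 and 44.1 CPM on chow to between 19.3 and 25.04 CPM on HFD. The *Abhd5* call was lost without Chow 2 or HFD 1, with an adjusted p of up to 0.0681. The most abundant coat protein, *Plin2*, was at 370.3 to 505 CPM on chow and 407 to 674 CPM on HFD and did not pass (log2 change 0.27). The other genes that rose were the acyltransferase *Agpat3* (0.43), the droplet dehydrogenase *Hsd17b13* (0.59) and *Cideb* (0.29), while the diacylglycerol acyltransferases *Dgat1* (-0.15) and *Dgat2* (0.16) did not pass. Counts ran from 4 (without HFD 1) to 9 (without HFD 2 or HFD 4) with single libraries left out.

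Because *Cidec*, *Fabp4* and *Cfd* are also adipocyte genes, the defining genes of fat cells were read beside them. All 3 rose. *Cfd*, an adipokine and complement protease, was at 1.23, 0.261, 10.95 and 3.55 CPM on chow and 12.5, 22.4, 10.7 and 24.4 CPM on HFD, overlapping through Chow 3. *Lep* was at 0 in all 8 libraries, *Adipoq* at 0 to 0.203 CPM on chow and 0 to 0.153 CPM on HFD, *Plin1* at 0 to 0.271 CPM on chow and 0 on HFD and *Retn* at 0 to 0.410 CPM on chow and 0 to 0.202 CPM on HFD. *Cidea*, a further droplet gene that hepatocytes can express, was not tested, because more than 4 of the 16 libraries had it under 1 CPM. Named after its values were seen, *Cidea* stood at 0, 0, 2.43 and 0 CPM on chow and 5.76, 5.07, 13.3 and 4.04 CPM on HFD. Of the remaining members, *Adrb3* was at 3.39 to 4.83 CPM on chow and 2.81 to 5.87 CPM on HFD and *Car3*, which hepatocytes make too, at 2758 to 4408 CPM on chow and 2415 to 3770.2 CPM on HFD. Neither passed. The call of *Cfd* was lost without Chow 1 or Chow 2, with an adjusted p of up to 0.0852, and the count of the 5 tested adipocyte genes ran from 1 (without Chow 1 or Chow 2) to 3. The adipocyte calls became 1 higher and 0 lower without HFD 1 and HFD 3.

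In the list of cholesterol synthesis 3 of 24 genes fell and 0 rose (median -0.16, or 0.12 with library totals). At 12.5% this share was near the 9.2% of all genes tested. Counts ran from 1 (without Chow 1) to 6 (without HFD 2) when single libraries were left out. The cholesterol calls became 0 higher and 2 lower without HFD 1 and HFD 3 and 2 higher and 0 lower with library totals. The cholesterol median ran from -0.25 (without Chow 2) to -0.008 (without HFD 2) with single libraries left out. *Tm7sf2*, a sterol reductase, was at 97.7, 92.1, 114 and 106 CPM on chow and 64.7, 68.5, 70.1 and 71.2 CPM on HFD, with tight groups that did not overlap (log2 change -0.58, SE 0.08, limma-voom adjusted p = 0.000577). *Idi1*, the isopentenyl diphosphate isomerase, was at 221, 163, 150.99 and 185 CPM on chow and 109, 70.9, 135 and 136 CPM on HFD, HFD 2 being the lowest (log2 change -0.70, SE 0.17, limma-voom adjusted p = 0.0176). *Cyp51*, the lanosterol demethylase, fell from between 137 and 196 CPM on chow to between 71.9 and 124 CPM on HFD. *Idi1* lost its call without Chow 1, with an adjusted p of up to 0.0659, and *Cyp51* without Chow 1 or Chow 4, with an adjusted p of up to 0.0787. The abundant members *Hmgcs1* (167 to 395 CPM on chow and 222 to 466 CPM on HFD) and *Fdps* (194 to 279 CPM on chow and 144 to 258 CPM on HFD) did not pass. Without HFD 2 and HFD 4 the list held 2 higher and 2 lower genes at a median of 0.01. In the list of efflux and esterification, 2 of 17 rose (*Abcg1*, a sterol exporter, 1.65, and *Cd5l*, 1.04) and 0 fell. At 11.8% the share of efflux genes that passed was near the 9.2% of all genes. The efflux calls became 1 higher and 0 lower without HFD 1 and HFD 3. Macrophages express both *Abcg1* and *Cd5l*, and the count ran from 1 (without Chow 1, Chow 2, Chow 3 or HFD 3) to 3 (without HFD 2).

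Among apolipoproteins, *Apoe* was the most abundant that rose, at 9201, 9699, 12096 and 10092 CPM on chow and 13414, 14734, 13016 and 13117 CPM on HFD. No HFD library overlapped chow (log2 change 0.41, SE 0.09, limma-voom adjusted p = 0.0126). *Apoc2*, the activator of lipoprotein lipase, rose from between 27.05 and 60.8 CPM on chow to between 68.3 and 182 CPM on HFD, with 78.8% of its words shared with other genes and its call lost without Chow 1, Chow 2, Chow 4, HFD 1 or HFD 3, with an adjusted p of up to 0.1. *Lipg*, the endothelial lipase, was at 8.61, 7.57, 10.8 and 10.4 CPM on chow and 17.6, 17.2, 23.1 and 17.2 CPM on HFD (log2 change 0.99, SE 0.17, limma-voom adjusted p = 0.00207). *Apom*, the carrier of sphingosine 1-phosphate, was at 116, 148, 107 and 119.8 CPM on chow and 56.5, 60.8, 60.2 and 69.9 CPM on HFD. Its HFD libraries were all under the chow range (log2 change -0.98, SE 0.13, limma-voom adjusted p = 0.000592). *Apob* (4769 to 7053 CPM on chow and 4613 to 6006 CPM on HFD), *Apoa1* (4792 to 5694 CPM on chow and 4095 to 4913 CPM on HFD) and *Apoa2* (2826 to 3813 CPM on chow and 3534 to 4060.4 CPM on HFD), the structural proteins of VLDL and HDL, did not pass. In all, 4 of 22 genes rose and 1 fell. The apolipoprotein calls became 2 higher and 1 lower without HFD 1 and HFD 3.

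Genes of the alternative and muricholate branches of bile acid synthesis fell. Of 17 tested genes, 4 fell and 0 rose (median -0.21; 0.07 with library totals), with counts from 2 (without HFD 3) to 6 (without HFD 2) when single libraries were left out. The bile acid calls became 1 higher and 2 lower with library totals. The bile acid median ran from -0.27 (without HFD 2) to -0.11 (without Chow 3) with single libraries left out. *Cyp7b1*, the oxysterol hydroxylase of the alternative pathway and a male-biased gene, was at 478, 466, 169.6 and 314 CPM on chow and 29.8, 146, 27.7 and 91.3 CPM on HFD. The lowest were HFD 1 and HFD 3, and Chow 3 was the lowest of its group, just above HFD 2 (log2 change -2.53, SE 0.59, limma-voom adjusted p = 0.0139; call lost without HFD 3, with an adjusted p of up to 0.0509). *Cyp2c70*, which makes muricholic acids in mice, was at 594, 603, 252 and 435 CPM on chow and 127, 178, 117 and 153 CPM on HFD (log2 change -1.65, SE 0.35, limma-voom adjusted p = 0.00777). *Cyp27a1*, the sterol 27-hydroxylase, fell from between 346 and 393 CPM on chow to between 216 and 293 CPM on HFD and the conjugating enzyme *Baat* from between 212 and 248 CPM on chow to between 173 and 197 CPM on HFD. *Baat* lost its call without Chow 1, Chow 3, Chow 4, HFD 1, HFD 3 or HFD 4, with an adjusted p of up to 0.103. *Hsd3b7*, a steroid dehydrogenase of this synthesis, was at 318 to 442 CPM on chow and 309 to 391 CPM on HFD, with 88.8% of its words shared, and *Akr1c6* at 820.4 to 898 CPM on chow and 684 to 919 CPM on HFD. Neither passed. No gene of this list rose or fell once HFD 1 and HFD 3 were left out (median -0.11; 0 higher and 5 lower with the other pair left out).

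Hepatobiliary transporters moved both ways, with 4 of 22 higher and 5 lower. The transporter calls became 2 higher and 2 lower without HFD 1 and HFD 3 and 8 higher and 4 lower with library totals. *Abcb11*, the canalicular bile salt export pump, was at 666, 749, 572 and 638 CPM on chow and 471, 419, 347 and 403 CPM on HFD. Chow and HFD did not overlap (log2 change -0.68, SE 0.15, limma-voom adjusted p = 0.00965). *Abcb4*, the phospholipid floppase of the same membrane, was at 217, 298, 250.4 and 212 CPM on chow and 381, 345, 367 and 322 CPM on HFD, in the opposite direction (log2 change 0.54, SE 0.10, limma-voom adjusted p = 0.00488). *Slco1a1*, a male-biased organic anion uptake carrier, was at 361, 430.2, 313 and 361 CPM on chow and 17.5, 182, 18.6 and 197 CPM on HFD. HFD 1 and HFD 3 were far under HFD 2 and HFD 4, and all were under chow (log2 change -2.68, SE 0.63, limma-voom adjusted p = 0.0148), and the call was lost without HFD 1 or HFD 3, with an adjusted p of up to 0.0578. *Slc22a28* (-2.40) and *Slc22a30* (-0.95), of the organic anion transporter family, fell. The bile acid importer *Slc10a1* was at 317 to 396 CPM on chow and 252 to 365 CPM on HFD, and *Abcc2* at 459 to 561 CPM on chow and 504 to 610.2 CPM on HFD; neither passed.

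No gene of glucose uptake and glycolysis fell. Of 21 genes of glycolysis and glucose uptake, 9 rose and 0 fell (42.9%; median 0.34). The glycolytic calls became 2 higher and 0 lower without HFD 1 and HFD 3. *Gckr*, a regulator of hepatic glucose phosphorylation, was at 128, 123, 141 and 128 CPM on chow and 179.7, 194, 170.01 and 177 CPM on HFD (log2 change 0.47, SE 0.09, limma-voom adjusted p = 0.00592). The glucose carrier *Slc2a2* rose from between 179 and 209 CPM on chow to between 285 and 341 CPM on HFD. *Khk*, the fructokinase, rose from between 195 and 259 CPM on chow to between 302 and 371 CPM on HFD, and *Gapdh* from between 963 and 1122 CPM on chow to between 1303 and 1511 CPM on HFD. The call of *Slc2a2* was lost without Chow 1, Chow 2 or HFD 3, with an adjusted p of up to 0.0716. That of *Khk* was lost without Chow 1, Chow 2, HFD 1, HFD 3 or HFD 4, with an adjusted p of up to 0.079. *Tpi1* (-0.04), *Pgk1* (-0.18), *Pgam1* (0.17) and *Gpi1* (0.24) did not pass. Leaving out single libraries gave counts from 4 (without Chow 1, Chow 2 or HFD 3) to 9.

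The list of gluconeogenesis and glycogen passed both ways, with 8 of 20 higher and 3 lower (counts from 7 (without HFD 3) to 12 (without HFD 2) with single libraries left out). *Igfbp1*, counted among the lower genes, is not an enzyme of these pathways. The gluconeogenic calls became 2 higher and 2 lower without HFD 1 and HFD 3. Genes known to be repressed by insulin were among those that fell. *G6pc*, the glucose-6-phosphatase, was at 385, 851, 417 and 491 CPM on chow and 225, 248, 169 and 43.4 CPM on HFD, with HFD 4 far below the others (log2 change -1.84, SE 0.41, limma-voom adjusted p = 0.0109). *Pck1*, the phosphoenolpyruvate carboxykinase, was at 2058, 2367, 1777 and 2257 CPM on chow and 1612, 1372, 1235 and 1184 CPM on HFD (log2 change -0.65, SE 0.16, limma-voom adjusted p = 0.0189). The *Pck1* call was lost without Chow 2, Chow 4, HFD 3 or HFD 4, with an adjusted p of up to 0.0608. *Igfbp1*, a binding protein of IGF that insulin also represses, was at 189, 222, 97.6 and 97.1 CPM on chow and 52.9, 25.7, 52.3 and 9.69 CPM on HFD. Chow 1 and Chow 2 were highest and HFD 4 lowest, without overlap (log2 change -2.23, SE 0.52, limma-voom adjusted p = 0.014). Enzymes that build glycogen were among those that rose. *Ugp2*, which makes UDP-glucose, was at 221, 247, 214 and 213 CPM on chow and 356, 381, 387 and 405 CPM on HFD (log2 change 0.77, SE 0.11, limma-voom adjusted p = 0.00104). The branching enzyme *Gbe1* was at 81.8, 81.7, 94.5 and 85.7 CPM on chow and 175, 120.3, 175 and 167 CPM on HFD (log2 change 0.87, SE 0.18, limma-voom adjusted p = 0.00739). *Pcx*, the pyruvate carboxylase, was at 327, 313, 347 and 355 CPM on chow and 663, 486, 683 and 634 CPM on HFD, with HFD 2 the lowest of its group (log2 change 0.87, SE 0.13, limma-voom adjusted p = 0.0013). *Fbp1* rose from between 589 and 652 CPM on chow to between 818 and 970.3 CPM on HFD. Glycogen phosphorylase, *Pygl*, was at 407 to 469 CPM on chow and 411 to 471 CPM on HFD and did not pass.

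In the list of insulin and IGF signalling 1 of 18 rose and 3 fell, with counts from 2 (without Chow 1, Chow 4 or HFD 3) to 4. The insulin calls became 0 higher and 0 lower without HFD 1 and HFD 3 and 3 higher and 2 lower with library totals. *Irs2*, an insulin receptor substrate that insulin lowers, was at 30.8, 51.1, 28.8 and 39.3 CPM on chow and 19.5, 17.7, 12.7 and 19.2 CPM on HFD, all HFD libraries below chow (log2 change -1.09, SE 0.25, limma-voom adjusted p = 0.0127). *Igfbp2* was at 158, 233, 132 and 156 CPM on chow and 53.3, 86.0, 40.2 and 54.5 CPM on HFD (log2 change -1.56, SE 0.27, limma-voom adjusted p = 0.0032). *Irs1* fell from between 23.9 and 45.5 CPM on chow to between 16.02 and 22.2 CPM on HFD. The call of *Irs1* was lost without Chow 1, Chow 2, Chow 4, HFD 1, HFD 2, HFD 3 or HFD 4, with an adjusted p of up to 0.136. *Trib3*, an inhibitor of AKT, rose from between 2.05 and 5.22 CPM on chow to between 3.84 and 8.89 CPM on HFD with overlap between the groups. The receptor itself, *Insr*, was at 109 to 139 CPM on chow and 112 to 125 CPM on HFD, and *Igf1* at 346 to 404 CPM on chow and 263 to 408 CPM on HFD; neither passed. Of the secreted hepatokines 4 of 21 rose and 4 fell. The hepatokine calls became 3 higher and 0 lower without HFD 1 and HFD 3 and 5 higher and 3 lower with library totals. *Lect2*, a chemotactic factor, rose from between 36.8 and 61.5 CPM on chow to between 76.5 and 115 CPM on HFD and *Selenop*, the selenium carrier of plasma, from between 2986 and 3491 CPM on chow to between 3969 and 4850.1 CPM on HFD. *Fetub*, a protease inhibitor of plasma, fell from between 309 and 381 CPM on chow to between 185 and 271 CPM on HFD. *Ahsg* (fetuin A) fell from between 3515 and 4718 CPM on chow to between 2928 and 3811 CPM on HFD, with overlap. The *Ahsg* call was lost without Chow 1, Chow 2, Chow 4, HFD 1, HFD 3 or HFD 4, with an adjusted p of up to 0.131.

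Male-biased genes of the growth hormone axis had the lowest median of any list. Of 24 tested, 17 fell and 0 rose (70.8%; median -2.06). *Serpina1e*, an alpha-1-antitrypsin paralog of male liver, was at 10296, 11448, 6695 and 8654 CPM on chow and 105, 949, 145 and 933 CPM on HFD. The lowest were HFD 1 and HFD 3, and all HFD libraries were far under chow (log2 change -4.73, SE 0.70, limma-voom adjusted p = 0.00106), though 54.2% of its words are shared with its paralogs. *C8b*, a subunit of the terminal complement complex that is higher in males, was at 353, 375, 221 and 295 CPM on chow and 30.1, 111, 40.0 and 120.3 CPM on HFD (log2 change -2.29, SE 0.39, limma-voom adjusted p = 0.00273). *C8a* was at 654, 831, 571 and 674 CPM on chow and 242, 389, 276 and 391 CPM on HFD (log2 change -1.09, SE 0.21, limma-voom adjusted p = 0.00499). In both, Chow 3 was the lowest chow library and the HFD pairs kept the same order. Outside the naming rule, and chosen after its values were seen, *Hsd3b5*, a steroid reductase of male liver, had the most negative change of the list (-6.61, adjusted p = 0.0153, limma-voom). It was at 206, 169, 175 and 193 CPM on chow and 0, 58.8, 0.153 and 35.9 CPM on HFD, so its fitted change rests on HFD 1 and HFD 3, which were at or near 0, and depends on the prior count. The most abundant members that did not pass were the urinary proteins *Mup3* (5025 to 5996 CPM on chow and 1802 to 4851 CPM on HFD) and *Mup20* (2379 to 5157 CPM on chow and 1654 to 2429 CPM on HFD), and *Cyp2d9* (1087 to 1141 CPM on chow and 484 to 1057 CPM on HFD). Their limma-voom adjusted p-values were 0.0613, 0.0646 and 0.0776.

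The depth of the fall differed between the HFD pairs, which were seen in these same counts, so this is a description and not independent evidence. Without HFD 1 and HFD 3, 0 higher and 5 lower genes passed at a median of -1.18, and without HFD 2 and HFD 4, 0 higher and 20 lower at -2.29. Counts ran from 8 (without HFD 3) to 20 (without HFD 2) with single libraries left out. Female-biased genes were mostly too low to test in these males (7 of 23), and 3 of the tested ones rose and 0 fell (counts from 1 (without Chow 2) to 4 (without HFD 2)). The female-biased calls became 1 higher and 0 lower without HFD 1 and HFD 3. *Cyp17a1*, the steroid 17-hydroxylase, was at 2.87, 3.91, 4.26 and 3.31 CPM on chow and 28.8, 8.66, 44.8 and 25.04 CPM on HFD. HFD 2 was the lowest HFD library and still above chow (log2 change 2.67, SE 0.60, limma-voom adjusted p = 0.0119). *Fmo2*, a flavin monooxygenase, rose from between 3.91 and 7.38 CPM on chow to between 9.48 and 20.4 CPM on HFD. The genes of growth hormone signalling mostly did not pass. *Ghr* was at 432 to 483 CPM on chow and 329 to 461 CPM on HFD, *Stat5b* at 44.8 to 64.4 CPM on chow and 43.5 to 57.2 CPM on HFD. *Bcl6*, a repressor in this pathway, was at 6.90 to 80.5 CPM on chow and 6.63 to 54.1 CPM on HFD. Only the prolactin receptor, *Prlr*, rose among the 12 tested (51.2 to 67.9 CPM on chow and 80.8 to 102 CPM on HFD). The call of *Prlr* was lost without Chow 1, Chow 2, HFD 1, HFD 2 or HFD 4, with an adjusted p of up to 0.0991.

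**Figure D4:**
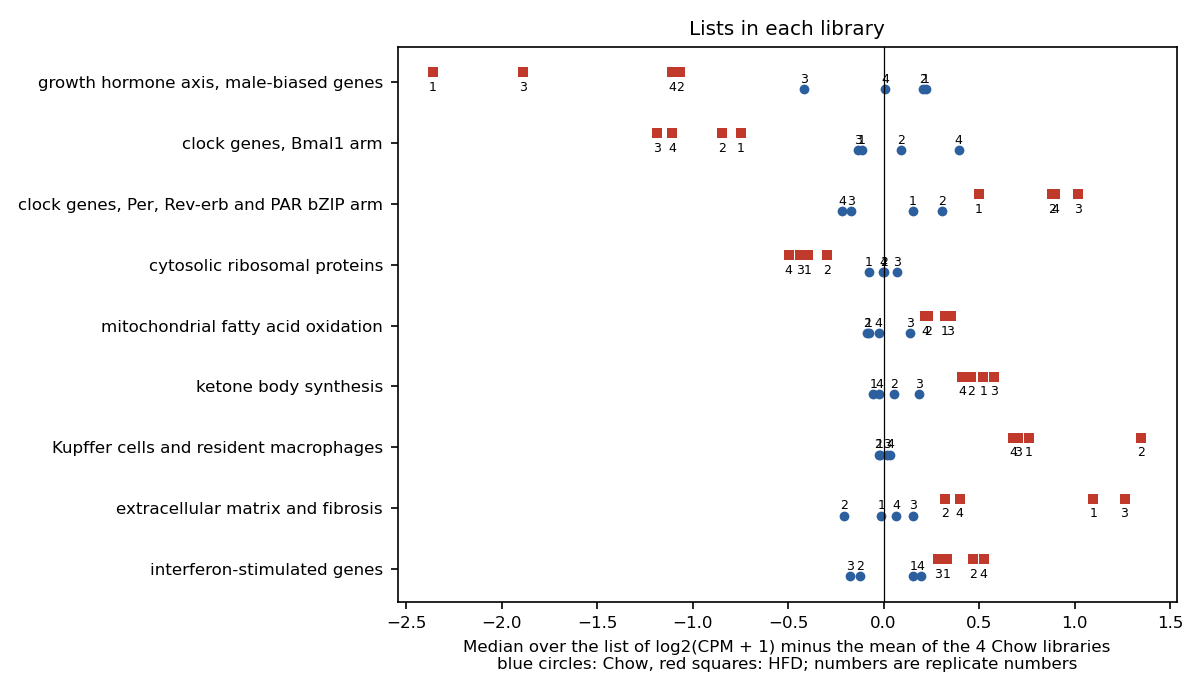
Median over each list of log2(CPM + 1) minus the mean of the 4 Chow libraries, for each library, with replicate numbers beside the points. HFD 1 and HFD 3 lie furthest from chow for male-biased genes and extracellular matrix, HFD 2 does for Kupffer cell markers, and all HFD libraries are close together for ribosomal proteins.

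More cytochrome P450 genes fell than rose. Of 29 genes of families 1 to 3, 10 fell and 3 rose (44.8%; median -0.34). The P450 calls became 0 higher and 5 lower without HFD 1 and HFD 3 and 6 higher and 9 lower with library totals. *Cyp3a11*, the main drug-oxidising P450 of mouse liver, was at 4265, 4453, 4784 and 4135 CPM on chow and 1033, 353, 1009.8 and 289 CPM on HFD. HFD 2 and HFD 4 were the lowest, the reverse of the order in male-biased genes, and no HFD library approached chow (log2 change -2.95, SE 0.41, limma-voom adjusted p = 0.000654). *Cyp2c29* was at 974, 828, 1220.2 and 1106 CPM on chow and 349, 426, 245 and 367 CPM on HFD (log2 change -1.58, SE 0.17, limma-voom adjusted p = 0.000103). *Cyp1a2*, a pericentral P450, was at 558, 433, 455 and 439.8 CPM on chow and 120.3, 238, 93.5 and 176 CPM on HFD (log2 change -1.67, SE 0.27, limma-voom adjusted p = 0.00176). *Cyp2f2*, a periportal P450, was at 1179, 1254, 939 and 1122 CPM on chow and 634, 630.1, 629 and 614 CPM on HFD, with HFD libraries within a narrow band (log2 change -0.83, SE 0.11, limma-voom adjusted p = 0.000618). Members that rose were *Cyp2c38* (18.01 to 40.7 CPM on chow and 53.8 to 92.6 CPM on HFD), *Cyp2d26* (517 to 643 CPM on chow and 685 to 841 CPM on HFD) and *Cyp2a22*, at 1.14, 0, 1.78 and 1.16 CPM on chow and 28.3, 11.2, 35.3 and 8.03 CPM on HFD (34.6% of its words shared). The *Cyp2a22* call was lost without Chow 1, Chow 2 or Chow 4, with an adjusted p of up to 0.0809. *Cyp2e1*, the most abundant of the list, was at 4273 to 5903 CPM on chow and 4406 to 7195 CPM on HFD and did not pass. Counts ran from 10 (without Chow 1 or Chow 2) to 14 (without HFD 2) with single libraries left out.

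Conjugating enzymes moved in both directions, with 5 of 45 higher and 7 lower (counts from 7 (without Chow 1 or Chow 2) to 12). The conjugation calls became 0 higher and 4 lower without HFD 1 and HFD 3 and 11 higher and 5 lower with library totals. *Ugt2b1*, a glucuronosyltransferase, was at 623, 586, 468 and 552 CPM on chow and 184, 274, 175 and 292 CPM on HFD (log2 change -1.30, SE 0.23, limma-voom adjusted p = 0.00344). *Ugt2b5*, with 56.4% of its words shared, was at 742, 717, 715 and 668 CPM on chow and 460.2, 441, 437 and 474 CPM on HFD (log2 change -0.65, SE 0.07, limma-voom adjusted p = 0.000143). *Nat8*, an acetyltransferase of the mercapturate pathway, fell from between 13.3 and 18.5 CPM on chow to between 3.59 and 7.81 CPM on HFD. The transferase *Gstm2* rose from between 24.3 and 44.3 CPM on chow to between 62.9 and 102 CPM on HFD and the sulfotransferase *Sult1a1* from between 82.7 and 165 CPM on chow to between 155 and 218 CPM on HFD. The monooxygenase *Fmo1* rose from between 114 and 132 CPM on chow to between 155 and 192 CPM on HFD. Among carboxylesterases 4 of 14 fell and 1 rose (*Nceh1*, a cholesteryl ester hydrolase, 0.69), with counts from 3 (without Chow 1, Chow 4 or HFD 3) to 6 (without HFD 2). The carboxylesterase calls became 0 higher and 2 lower without HFD 1 and HFD 3 and 3 higher and 2 lower with library totals. Beside *Ces2a* those that fell were *Ces1d*, a triglyceride hydrolase, at 549.9, 571, 844 and 738 CPM on chow and 458, 271, 447 and 331 CPM on HFD (log2 change -0.85, SE 0.20, limma-voom adjusted p = 0.0155), *Ces1f* (-0.47) and *Ces2c* (-0.98). *Ces1c*, the esterase of mouse plasma, was at 1733 to 2128 CPM on chow and 1489 to 1795 CPM on HFD and did not pass. The nuclear receptors that control these genes were not among those that fell: 2 of 19 rose (*Ppara* and *Rara*; counts from 1 (without Chow 1) to 4 (without HFD 2)), and *Nr1i3*, which encodes CAR, was at 69.1 to 146 CPM on chow and 137 to 197 CPM on HFD (adjusted p = 0.161, limma-voom). At 10.5% the share of receptors that passed was near the 9.2% of all genes. The receptor calls became 0 higher and 0 lower without HFD 1 and HFD 3.

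Enzymes of amino acid catabolism passed in both directions, with 5 of 38 genes lower and 2 higher (median -0.10; 0.18 with library totals; counts from 3 (without Chow 1) to 7). The amino acid calls became 0 higher and 0 lower without HFD 1 and HFD 3 and 7 higher and 2 lower with library totals. The amino acid median ran from -0.14 (without HFD 2) to -0.042 (without HFD 3) with single libraries left out. *Cps1*, the first enzyme of the urea cycle, was at 4529, 3835, 2723 and 3244 CPM on chow and 1746, 2252, 1459 and 2343 CPM on HFD (log2 change -0.88, SE 0.21, limma-voom adjusted p = 0.0148), and lost its call without Chow 1 or HFD 3, with an adjusted p of up to 0.0545. *Tat*, the tyrosine aminotransferase that glucocorticoids induce, was at 1688, 1255, 1247 and 1435 CPM on chow and 694, 701, 394 and 378 CPM on HFD, HFD 3 and HFD 4 being the lowest (log2 change -1.43, SE 0.31, limma-voom adjusted p = 0.00885). *Arg1* fell from between 786 and 893 CPM on chow to between 622 and 680.1 CPM on HFD. In methionine and one-carbon metabolism 6 of 25 fell and 1, *Mat1a*, rose, with counts from 4 (without Chow 1 or HFD 3) to 7. The methionine calls became 1 higher and 2 lower without HFD 1 and HFD 3 and 6 higher and 2 lower with library totals. *Csad*, the decarboxylase that makes hypotaurine, was at 329, 419, 469 and 387 CPM on chow and 116, 39.7, 133 and 118 CPM on HFD. HFD 2 was the lowest and the groups were far apart (log2 change -2.11, SE 0.31, limma-voom adjusted p = 0.000979). *Gnmt*, the glycine methyltransferase, was at 964, 910.4, 1078 and 980.0 CPM on chow and 557, 643, 524 and 711 CPM on HFD (log2 change -0.70, SE 0.12, limma-voom adjusted p = 0.00335). *Bhmt*, the most abundant of the list, was at 2397 to 4197 CPM on chow and 2680.0 to 4518 CPM on HFD and did not pass.

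The lobule is zoned, with urea and glucose synthesis near the portal vein and glutamine synthesis and drug metabolism near the central vein. Of the pericentral list 3 of 25 genes rose and 2 fell (median 0.29), and of the periportal list 4 of 26 rose and 7 fell (median -0.17; 0.11 with library totals; counts from 5 (without HFD 3) to 11). The periportal calls became 1 higher and 2 lower without HFD 1 and HFD 3 and 5 higher and 3 lower with library totals. The periportal median ran from -0.24 (without HFD 2) to -0.079 (without HFD 3) with single libraries left out. The pericentral calls became 5 higher and 1 lower without HFD 1 and HFD 3 and 10 higher and 1 lower with library totals. *Slc13a3*, a dicarboxylate carrier of pericentral cells, was at 16.2, 11.9998, 13.4 and 9.94 CPM on chow and 35.0, 35.6, 36.6 and 32.3 CPM on HFD (log2 change 1.44, SE 0.24, limma-voom adjusted p = 0.0019). *Cdh1*, the E-cadherin of periportal hepatocytes, was at 42.6, 32.8, 30.2 and 44.0 CPM on chow and 14.7, 8.17, 20.2 and 7.47 CPM on HFD, with HFD 2 and HFD 4 the lowest and no overlap (log2 change -1.62, SE 0.26, limma-voom adjusted p = 0.0019). Both lists held genes that moved either way: *Cyp1a2* and *Cyp27a1* fell among the pericentral genes, and *Fbp1*, *Hsd17b13*, *Uroc1* and *Cyp17a1* rose among the periportal ones.

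Cytosolic ribosomal proteins had a lower mean on HFD in all 70 tested members. Of 70 genes 58 fell and 0 rose (82.9%, against 9.2% of all genes), with a median of -0.41. The ribosomal calls became 0 higher and 19 lower without HFD 1 and HFD 3. *Rps14* was at 128, 134, 130.02 and 125 CPM on chow and 91.1, 95.6, 94.1 and 86.2 CPM on HFD, *Rpl4* at 376, 371, 385 and 357 CPM on chow and 267, 269, 263 and 252 CPM on HFD and *Rps3a1* at 219, 234, 241 and 236 CPM on chow and 161, 159, 158 and 144 CPM on HFD. In each the HFD group was narrow and below chow (log2 changes -0.49, -0.50 and -0.58). The members that did not pass and were most abundant, *Rps2* (-0.24), *Rpl10* (-0.25), *Rps6* (-0.23) and *Rpl31* (-0.12), were lower in the mean as well. The count depended on scaling. With library totals alone 0 higher and 6 lower passed and the median was -0.13, with all genes at 0.287. A change of scaling shifts all genes by nearly the same amount, so it cannot test where the list lies relative to them. Many ribosomal protein genes have pseudogenes, and 76.9% of the words of *Rps3a1* are shared. The 60 tested subunits of the respiratory chain, another set of abundant genes, held 0 genes that passed (1 higher and 5 lower at the threshold of the study; median -0.06). *Atp5b*, of the ATP synthase, was at 864 to 907 CPM on chow and 784 to 854 CPM on HFD, and *Sdha*, of complex II, at 396 to 444 CPM on chow and 394 to 464 CPM on HFD.

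Endoplasmic reticulum chaperones and genes of the unfolded protein response passed at few members, with 1 of 27 lower (*Ern1*, the stress sensor IRE1, 78.5 to 133 CPM on chow and 50.9 to 74.1 CPM on HFD; call lost without Chow 1, Chow 2, HFD 1 or HFD 3, with an adjusted p of up to 0.0727) and 0 higher. The chaperone calls became 0 higher and 0 lower without HFD 1 and HFD 3, and their count ran from 0 (without Chow 1, Chow 2, HFD 1 or HFD 3) to 1 with single libraries left out. The chaperone *Hspa5* was at 1019 to 1638 CPM on chow and 816 to 1496 CPM on HFD. Of NRF2 targets and antioxidant enzymes 1 of 24 rose and 2 fell (counts from 1 (without Chow 1 or HFD 1) to 5 (without HFD 2)). The antioxidant calls became 0 higher and 0 lower without HFD 1 and HFD 3 and 6 higher and 1 lower with library totals. *Aox3*, an aldehyde oxidase, was at 1051, 952, 799.6 and 1046 CPM on chow and 493, 729, 461 and 475 CPM on HFD (log2 change -0.85, SE 0.18, limma-voom adjusted p = 0.00861). *Gpx4*, the peroxidase of membrane lipids, rose from between 123 and 170.2 CPM on chow to between 167 and 272 CPM on HFD. The call of *Gpx4* was lost without Chow 1, Chow 2, Chow 4, HFD 1 or HFD 3, with an adjusted p of up to 0.0766. *Cat* (2295 to 2497 CPM on chow and 1962 to 2481 CPM on HFD) and *Gpx1* (1195 to 1342 CPM on chow and 1138 to 1423 CPM on HFD) did not pass. Among alcohol, aldehyde and NAD enzymes 4 of 23 rose and 1 fell (counts from 3 (without Chow 1, HFD 1 or HFD 3) to 8 (without Chow 3)). The alcohol and aldehyde calls became 1 higher and 0 lower without HFD 1 and HFD 3 and 11 higher and 1 lower with library totals. *Nampt*, of the pathway that makes NAD from nicotinamide, rose and was at 30.5, 27.1, 32.5 and 24.6 CPM on chow and 36.2, 41.0, 47.1 and 62.0 CPM on HFD (log2 change 0.66, SE 0.15, limma-voom adjusted p = 0.0123).

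Genes of coagulation and complement moved both ways, and the balance depended on scaling. Of 40 genes 11 fell and 4 rose (37.5%; median -0.21, 0.07 with library totals). The complement calls became 2 higher and 1 lower without HFD 1 and HFD 3 and 9 higher and 7 lower with library totals. The coagulation factors *F7* (56.4, 52.2, 56.2 and 59.7 CPM on chow and 35.3, 41.0, 30.05 and 40.8 CPM on HFD) and *F10* (333, 330.1, 318 and 360.2 CPM on chow and 254, 277, 231 and 238 CPM on HFD) fell without overlap (log2 changes -0.62 and -0.43), as did the plasmin inhibitor *Serpinf2* (-0.39) and the complement protease *C1ra* (-0.58). The members that rose included *C1qa* (8.41, 8.87, 8.72 and 8.996 CPM on chow and 19.2, 23.9, 16.9 and 13.1 CPM on HFD) and *C1qc* (10.3, 9.13, 10.3 and 8.29 CPM on chow and 12.2, 21.6, 16.1 and 15.5 CPM on HFD), which Kupffer cells and not hepatocytes make, *Cfd*, and the lectin *Mbl2* (0.49). The 3 fibrinogen chains fell. *Fga* fell from between 3242 and 5615 CPM on chow to between 2208 and 2973 CPM on HFD, *Fgb* from between 2899 and 4710.2 CPM on chow to between 1956 and 2722 CPM on HFD and *Fgg* from between 2608 and 4294 CPM on chow to between 1698 and 2402 CPM on HFD. The call of *Fga* was lost without Chow 1, Chow 2, HFD 1, HFD 3 or HFD 4, with an adjusted p of up to 0.126. That of *Fgb* was lost without Chow 1, Chow 2, HFD 1 or HFD 3, with an adjusted p of up to 0.104, and that of *Fgg* without Chow 1, Chow 2, HFD 1 or HFD 3, with an adjusted p of up to 0.111. Beyond fibrinogen the acute-phase list had 1 further falling gene, *Serpina3k* (10332, 10157, 8105 and 8852 CPM on chow and 2022, 5736, 1969.9 and 5329 CPM on HFD), and 1 rising gene, *Serpina3m* (118 to 183 CPM on chow and 249 to 314 CPM on HFD), of 24 tested. The acute-phase calls became 0 higher and 0 lower without HFD 1 and HFD 3 and 3 higher and 1 lower with library totals. With single libraries left out from 0 (without Chow 1, HFD 1 or HFD 3) to 5 passed. *Hp* (1629 to 2459.7 CPM on chow and 1976 to 2654 CPM on HFD) and *Hpx* (1782 to 2732 CPM on chow and 2146 to 3159 CPM on HFD) did not pass. In the list of iron handling 3 of 18 genes passed. With single libraries left out, from 0 (without Chow 1, Chow 2, HFD 1 or HFD 3) to 3 did. *Fga*, the fibrinogen chain already counted above, was among the 3, so the other genes that passed were *Fth1* and *Tfr2*. Without *Fga* the share lies nearer that of all genes, and it is not read as a change of the list. The iron calls became 0 higher and 0 lower without HFD 1 and HFD 3 and 6 higher and 0 lower with library totals. *Fth1*, a ferritin chain, rose from between 881 and 1052 CPM on chow to between 1151 and 1381 CPM on HFD and *Tfr2*, the transferrin receptor 2 of hepatocytes, fell from between 274 and 306 CPM on chow to between 227 and 257 CPM on HFD. *Trf*, the plasma transferrin, was at 10770.3 to 12098 CPM on chow and 9465 to 12370.3 CPM on HFD.

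Clock genes separated the diets in opposite directions for the arms of the oscillator. The CLOCK and BMAL1 pair activates *Per*, *Cry*, *Nr1d1* and PAR bZIP genes (*Dbp*, *Tef* and *Hlf*) through E-boxes, PAR bZIP factors act on D-boxes, and REV-ERB and ROR receptors act on elements of *Arntl* and *Nfil3* called ROREs. Of the Bmal1 arm 5 of 7 genes fell and 0 rose (median -1.08), and of the Per, Rev-erb and PAR bZIP arm 5 of 11 rose and 0 fell (median 0.79). The Per arm calls became 6 higher and 0 lower without HFD 1 and HFD 3. The Bmal1 arm calls became 0 higher and 4 lower without HFD 1 and HFD 3. The promoters of these genes, taken from RefSeq for GRCm38.p6 as 250 bases before to 50 after the start and found for 6 of the first and 9 of the second arm, were searched on both strands for an E-box (CACGTG), a D-box (TTATGTAA) and a RORE (GTAGGTCA). These occur in 8.09%, 1.11% and 0.71% of 27025 promoters, and in 11.9%, 0.705% and 0.601% of the 8658 promoters of tested genes. In the Bmal1 arm, *Arntl* and *Nfil3* held a RORE (2 of 6) and *Cry1* an E-box. In the other arm *Tef* and *Per1* held an E-box (2 of 9) and *Per3* a D-box (1 of 9). A STAT5 motif (TTCNNNGAA), searched too, is in 9.55% of all promoters and 8.17% of those of tested genes. It was in 1 of 16 promoters of male-biased genes (*C8a*), 2 of 9 of the Per arm (*Dbp* and *Per1*), 0 of 6 of the Bmal1 arm, 3 of 52 of ribosomal proteins and 9 of 29 of interferon-stimulated genes. Stretches around 4 of these matches are shown, on the gene's strand with the match in capitals, because their genes are those whose levels separate the diets in opposite directions.
Tef, chr15:81802493-81802592, plus strand, E-box: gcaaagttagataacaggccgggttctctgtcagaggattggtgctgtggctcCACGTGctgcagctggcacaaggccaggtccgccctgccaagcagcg
Per3, chr4:151044786-151044885, minus strand, D-boxes: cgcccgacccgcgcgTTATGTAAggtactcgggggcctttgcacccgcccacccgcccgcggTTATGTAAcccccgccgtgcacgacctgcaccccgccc
Nfil3, chr13:52981040-52981139, minus strand, RORE read on the other strand: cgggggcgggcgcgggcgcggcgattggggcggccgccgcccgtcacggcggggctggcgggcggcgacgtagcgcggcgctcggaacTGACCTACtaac
Arntl, chr7:113207528-113207557, plus strand, RORE: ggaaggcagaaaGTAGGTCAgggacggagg

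*Dbp*, a PAR bZIP activator, was at 2.67, 8.35, 1.01 and 0.710 CPM on chow and 21.2, 36.9, 52.0 and 77.9 CPM on HFD. HFD 4 was the highest and HFD 1 the lowest of the HFD group, all above chow (log2 change 4.32, SE 0.77, limma-voom adjusted p = 0.00344). *Per3*, whose promoter holds 2 D-boxes, was at 2.46, 3.39, 2.64 and 2.13 CPM on chow and 9.80, 15.5, 21.4 and 27.5 CPM on HFD in the same order (log2 change 2.64, SE 0.47, limma-voom adjusted p = 0.00334). *Tef*, with its E-box, was at 48.0, 59.5, 40.8 and 45.2 CPM on chow and 73.6, 106, 104 and 139 CPM on HFD (log2 change 1.11, SE 0.18, limma-voom adjusted p = 0.0019). *Per2* rose from between 5.9999 and 14.8 CPM on chow to between 17.4 and 31.5 CPM on HFD and *Hlf* from between 19.6 and 31.01 CPM on chow to between 35.9 and 51.8 CPM on HFD. In the other direction *Arntl*, with its RORE, was at 16.6, 15.1, 20.5 and 28.4 CPM on chow and 9.08, 5.39, 4.45 and 1.41 CPM on HFD, with HFD 4 the lowest and HFD 1 the highest HFD library (log2 change -2.09, SE 0.36, limma-voom adjusted p = 0.00296). *Nfil3*, with the other RORE, was at 53.9, 59.0, 46.9 and 62.3 CPM on chow and 22.5, 18.3, 12.7 and 8.08 CPM on HFD (log2 change -1.89, SE 0.32, limma-voom adjusted p = 0.00232). *Clock* was at 75.7, 87.7, 61.7 and 74.3 CPM on chow and 35.0, 41.5, 30.2 and 33.9 CPM on HFD (log2 change -1.08, SE 0.15, limma-voom adjusted p = 0.000592). *Nr1d1*, which encodes REV-ERB alpha, overlapped between the diets (51.5 to 99.9 CPM on chow and 49.5 to 107 CPM on HFD; log2 change 0.09), as did *Bhlhe40* (48.1 to 206 CPM on chow and 67.2 to 109 CPM on HFD). These calls held without any single library, except for *Cry1*, whose call was lost without Chow 2, Chow 4, HFD 1 or HFD 3, with an adjusted p of up to 0.0771. Diet and the phase of these genes cannot be told apart in this comparison, and every clock-linked gene above, *Elovl3* and *Serpina6* among them, shares that limit.

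Genes of innate immunity were modestly higher. Of 38 interferon-stimulated genes, 6 rose and 1 fell at an adjusted p under 0.05, and 16 were higher and 1 lower at the threshold of the study (median 0.43). The interferon calls became 23 higher and 0 lower with library totals. *Usp18*, a brake on the interferon receptor, was at 3.49, 4.17, 3.25 and 5.21 CPM on chow and 8.79, 10.8, 9.505 and 12.5 CPM on HFD (log2 change 1.35, SE 0.26, limma-voom adjusted p = 0.00538). *Ifit3*, which binds viral RNA, was at 5.10, 3.74, 3.27 and 6.31 CPM on chow and 8.05, 10.4, 8.88 and 11.7 CPM on HFD (log2 change 1.08, SE 0.25, limma-voom adjusted p = 0.0144; 61.8% of words shared). Neither gene overlapped between diets. *Tap1*, the peptide transporter of antigen presentation, rose from between 9.65 and 22.3 CPM on chow to between 24.8 and 27.7 CPM on HFD, and *Oas2* from between 0.237 and 1.83 CPM on chow to between 2.45 and 4.41 CPM on HFD, a level of few reads. *Bst2* fell from between 56.0 and 71.5 CPM on chow to between 45.4 and 55.6 CPM on HFD. Counts ran from 4 (without Chow 1, Chow 2 or HFD 1) to 6, and without HFD 1 and HFD 3 they were 2 higher and 0 lower. In MHC class I presentation 2 of 16 genes rose, *Tap1* and *Tap2* (counts from 0 (without Chow 1) to 3 (without HFD 2)), while *H2-K1* (738 to 832 CPM on chow and 776 to 818 CPM on HFD) and *B2m* (909 to 955 CPM on chow and 933 to 1191 CPM on HFD) did not pass. The MHC class I calls became 0 higher and 0 lower without HFD 1 and HFD 3. Lysosomal genes rose at 8 of 23 (median 0.32; counts from 4 (without Chow 1 or HFD 3) to 9 (without HFD 4)). The lysosomal calls became 1 higher and 0 lower without HFD 1 and HFD 3. *Hexa*, a lysosomal hexosaminidase subunit, was at 22.1, 28.7, 26.4 and 24.1 CPM on chow and 46.8, 35.8, 56.7 and 42.2 CPM on HFD and rose without overlap. *Ctss*, a cathepsin of myeloid cells, rose from between 5.9999 and 9.23 CPM on chow to between 11.1 and 19.6 CPM on HFD and *Cd68*, a macrophage lysosomal protein, from between 0.783 and 1.64 CPM on chow to between 3.23 and 5.23 CPM on HFD. The ubiquitous *Lamp1* (413 to 465 CPM on chow and 421 to 473 CPM on HFD) and *Ctsl* (356 to 393 CPM on chow and 359.7 to 407 CPM on HFD) did not pass.

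Markers of Kupffer cells were higher on HFD. Of 16 tested, 9 rose and 0 fell (56.2%; median 0.96), and the count ran from 6 (without Chow 1 or Chow 2) to 10 (without HFD 4) with single libraries left out. Without HFD 1 and HFD 3 it was 6 higher and 0 lower (median 1.04), and without HFD 2 and HFD 4 7 higher and 0 lower (median 0.92). *Csf1r*, the receptor for macrophage colony-stimulating factor, was at 10.7, 9.39, 10.5 and 13.7 CPM on chow and 23.2, 28.4, 20.7 and 21.8 CPM on HFD (log2 change 1.08, SE 0.16, limma-voom adjusted p = 0.00127). *Clec4f*, the lectin that defines mouse Kupffer cells, was at 17.6, 20.3, 21.1 and 22.96 CPM on chow and 32.3, 57.9, 26.8 and 36.3 CPM on HFD (log2 change 0.84, SE 0.22, limma-voom adjusted p = 0.0269). *Vsig4*, a complement receptor of resident macrophages, was at 3.90, 2.87, 3.85 and 3.08 CPM on chow and 7.64, 13.2, 6.13 and 7.67 CPM on HFD. *Cd5l*, a macrophage secreted protein, was at 14.8, 17.5, 16.2 and 15.4 CPM on chow and 29.4, 51.3, 28.97 and 26.5 CPM on HFD. In these genes HFD 2 was the highest and no HFD library reached down to chow. *Adgre1*, which encodes F4/80, rose from between 1.64 and 3.45 CPM on chow to between 5.25 and 11.1 CPM on HFD. The call of *Adgre1* was lost without Chow 1 or Chow 2, with an adjusted p of up to 0.0835. *Clec4f* lost its call without Chow 1 or Chow 2, with an adjusted p of up to 0.0887 and *Vsig4* without Chow 1, Chow 2 or Chow 4, with an adjusted p of up to 0.0678. *Timd4* (0.710 to 1.83 CPM on chow and 1.53 to 2.94 CPM on HFD) and *Marco* (0.783 to 1.23 CPM on chow and 1.99 to 8.34 CPM on HFD) did not pass. The summed level of the list was 166, 173, 191 and 182 CPM on chow and 269, 403, 274 and 272 CPM on HFD. Library HFD 2 stood apart from the other HFD libraries, which lay within a narrow range above chow. In bulk tissue more cells of a type and more RNA per cell cannot be told apart, and this holds for all cell type lists here.

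**Figure D5:**
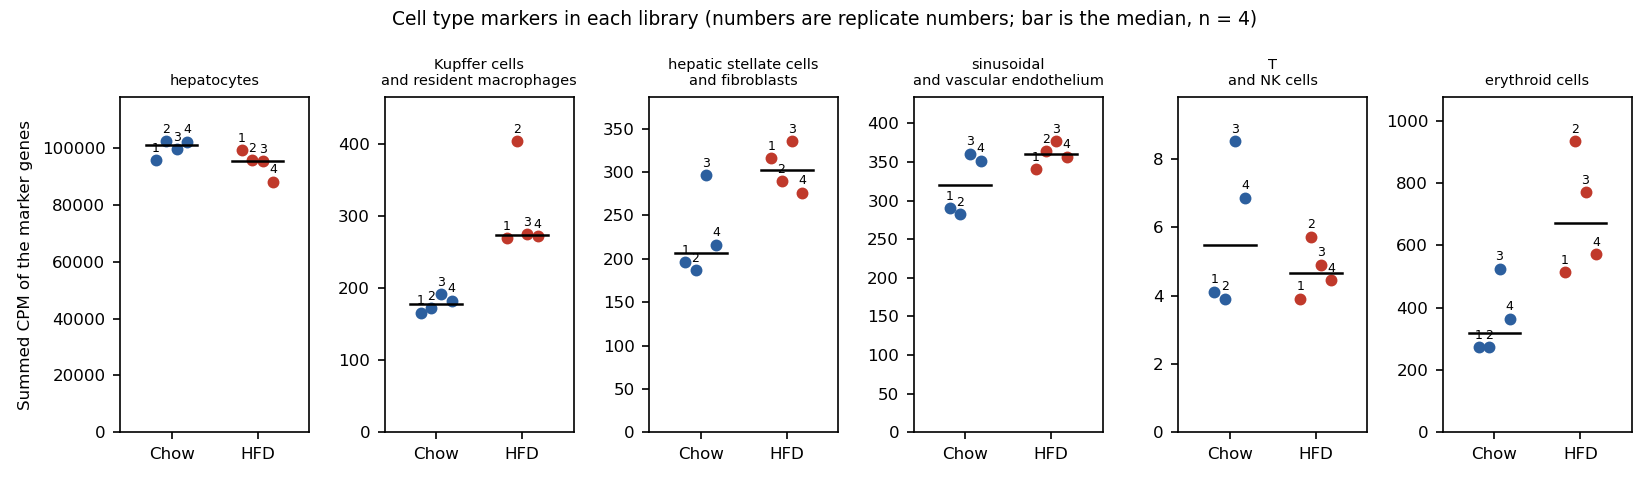
Summed CPM of the marker lists of 6 cell types in each library, with replicate numbers and a bar for the median (n = 4); each vertical axis starts at 0. Kupffer cell markers lie between 269 and 403 CPM on HFD and between 166 and 191 CPM on chow, whereas the sums of hepatocyte, endothelial and T and NK cell markers overlap between the diets.

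Markers of recruited macrophages were mostly dropped by the filter on 1 CPM (6 of 17 were tested), with 0 rising and 1 falling (*Fabp5*; counts from 0 (without Chow 1, Chow 2, HFD 1, HFD 2, HFD 3 or HFD 4) to 1). The recruited macrophage calls became 0 higher and 0 lower without HFD 1 and HFD 3. Among the untested ones *Trem2* was at 0 to 0.308 CPM on chow and 0.0817 to 0.920 CPM on HFD, *Gpnmb* at 0 to 0.203 CPM on chow and 0 to 3.26 CPM on HFD and *Ccr2* at 0.406 to 0.710 CPM on chow and 0.327 to 5.22 CPM on HFD. The untested *Lgals3* was at 1.03, 0.522, 1.42 and 0.473 CPM on chow and 3.31, 2.78, 5.52 and 2.42 CPM on HFD and *Clec7a* at 0.410, 0.261, 1.01 and 0.237 CPM on chow and 2.16, 1.96, 3.99 and 2.02 CPM on HFD, both named after their values were seen. Neither overlapped between the diets, at low levels. Markers of dendritic cells and MHC class II held 8 tested genes, of which *Bst2* fell and none rose (counts from 0 (without Chow 2 or HFD 3) to 2 (without HFD 4)). The dendritic calls became 0 higher and 0 lower without HFD 1 and HFD 3 and 4 higher and 0 lower with library totals. *H2-Ab1* (2.35 to 10.2 CPM on chow and 9.89 to 19.6 CPM on HFD; adjusted p = 0.0634) and *H2-Eb1* (4.51 to 11.1 CPM on chow and 9.48 to 21.9 CPM on HFD; adjusted p = 0.0533) came near the limma-voom threshold. No marker of neutrophils or of T and NK cells was high enough to test. Summed levels of neutrophil markers were 0.812 to 4.73 CPM on chow and 2.73 to 3.83 CPM on HFD, and of T and NK cell markers 3.91 to 8.52 CPM on chow and 3.91 to 5.72 CPM on HFD, so changes in these cells were not detectable at this depth. Of the 2 B cell genes tested, neither *Ighm* (1.04 to 4.97 CPM on chow and 3.76 to 10.3 CPM on HFD) nor *Igkc* (0.473 to 3.45 CPM on chow and 1.07 to 4.64 CPM on HFD) passed.

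Genes of the list of extracellular matrix and fibrosis were higher, most of all in HFD 1 and HFD 3. The list also holds genes that are not structural matrix, *Anxa2*, *Anxa5* and *Lgals1* among them. Of 31 tested, 9 rose and 0 fell (29.03%; median 0.84), and 20 were higher at the threshold of the study. Counts ran from 5 (without HFD 3) to 16 (without HFD 2) with single libraries left out. *Anxa2*, a membrane annexin, was at 6.77, 1.83, 13.6 and 6.63 CPM on chow and 68.7, 34.3, 81.3 and 23.6 CPM on HFD. *Anxa5* was at 41.8, 37.6, 51.9 and 38.8 CPM on chow and 152, 66.5, 196 and 93.1 CPM on HFD. In both, HFD 1 and HFD 3 were highest and no overlap was seen (log2 changes 2.90 and 1.46). *Lgals1*, the galectin 1 of mesenchymal and immune cells, was at 10.05, 7.04, 23.7 and 8.76 CPM on chow and 59.5, 39.1, 75.6 and 35.9 CPM on HFD (log2 change 2.14, SE 0.39, limma-voom adjusted p = 0.00354). The collagens that rose were *Col14a1* (20.5, 20.1, 24.9 and 28.9 CPM on chow and 51.2, 32.9, 51.1 and 35.7 CPM on HFD) and *Col4a1* (22.3, 28.7, 19.5 and 19.2 CPM on chow and 42.8, 29.3, 50.6 and 35.5 CPM on HFD), with the *Col4a1* call lost without Chow 4 or HFD 3, with an adjusted p of up to 0.058. *Fn1*, fibronectin, which hepatocytes make in quantity, was at 933 to 1268 CPM on chow and 1112 to 1355 CPM on HFD and did not pass. Without HFD 1 and HFD 3 the counts were 3 higher and 0 lower with a median of 0.55, and without HFD 2 and HFD 4 they were 22 higher and 0 lower with 1.33. Summed stellate cell and fibroblast markers were 196, 187, 296 and 217 CPM on chow and 316, 289, 336 and 276 CPM on HFD, so Chow 3 lay within the HFD range. Of these markers 1 of 18 rose, and from 0 (without Chow 1, Chow 2, Chow 4, HFD 1 or HFD 3) to 3 (without Chow 3) passed with single libraries left out. The stellate calls became 0 higher and 0 lower without HFD 1 and HFD 3. The marker that rose was *Dcn*, decorin, from between 41.6 and 67.3 CPM on chow to between 68.9 and 96.4 CPM on HFD. The *Dcn* call was lost without Chow 1, Chow 2, Chow 4, HFD 1 or HFD 3, with an adjusted p of up to 0.107. The stellate genes *Lrat* (6.52 to 11.8 CPM on chow and 6.46 to 14.5 CPM on HFD), *Des* (1.64 to 2.84 CPM on chow and 1.01 to 2.78 CPM on HFD) and *Acta2* (1.30 to 2.64 CPM on chow and 0.983 to 4.76 CPM on HFD) did not pass. The part of stellate cells in the matrix result was not tested.

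Genes of the cell cycle were low and uneven. Of 13 tested, 4 rose and 1 fell, with counts from 1 (without Chow 4) to 7 (without HFD 2). The proliferation calls became 0 higher and 0 lower without HFD 1 and HFD 3 and 8 higher and 0 lower with library totals. *Ccnd1*, cyclin D1, was at 9.02, 9.91, 6.49 and 9.23 CPM on chow and 35.7, 12.3, 35.7 and 18.2 CPM on HFD, with HFD 1 and HFD 3 highest (log2 change 1.46, SE 0.43, limma-voom adjusted p = 0.0437). *Mki67*, a marker of cycling cells, was at 1.44, 3.39, 1.22 and 1.42 CPM on chow and 7.35, 3.27, 8.89 and 4.04 CPM on HFD, overlapping through Chow 2. *Ccnd1* lost its call without Chow 1, Chow 2, Chow 3, Chow 4, HFD 1 or HFD 3, with an adjusted p of up to 0.108, and *Mki67* without Chow 1, Chow 2, Chow 3, Chow 4, HFD 1 or HFD 3, with an adjusted p of up to 0.115. *Pcna* (17.1 to 22.96 CPM on chow and 18.5 to 28.2 CPM on HFD) and *Tyms* (5.48 to 11.3 CPM on chow and 5.77 to 7.75 CPM on HFD) did not pass. *Tk1* fell from between 9.68 and 16.6 CPM on chow to between 5.37 and 10.6 CPM on HFD. In the list of cytoskeleton and ductular genes 1 of 19 rose (*Tmsb4x*, 25.6 to 38.5 CPM on chow and 41.6 to 69.4 CPM on HFD) and 1 fell (*Tubb5*, 48.0 to 53.7 CPM on chow and 36.1 to 42.9 CPM on HFD). The cytoskeletal calls became 7 higher and 0 lower with library totals, and their count ran from 1 (without Chow 2, Chow 4, HFD 1 or HFD 3) to 2 with single libraries left out. Without HFD 2 and HFD 4 this list held 10 higher and 0 lower, and without HFD 1 and HFD 3 0 higher and 1 lower.

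Hepatocyte markers, which the liver label calls for, were high in all libraries. *Alb* was at 41969 to 49392 CPM on chow and 44211 to 55807 CPM on HFD and *Ttr* at 3705 to 4323 CPM on chow and 3668 to 4911 CPM on HFD. The summed list was at 95695 to 102324 CPM on chow and 88043 to 99026 CPM on HFD. Of 12 hepatocyte markers, 4 fell and 0 rose (median -0.30, -0.02 with library totals; counts from 2 (without Chow 1, Chow 2, HFD 1 or HFD 3) to 6 (without HFD 2)). The hepatocyte calls became 0 higher and 0 lower without HFD 1 and HFD 3 and 0 higher and 0 lower with library totals. Those that fell were *Fgb*, *Ahsg* and the antitrypsins *Serpina1a* (3558 to 3939 CPM on chow and 2037 to 3166 CPM on HFD) and *Serpina1d* (2834 to 3102 CPM on chow and 1523 to 2533 CPM on HFD), of which 65.2% and 64.7% of words are shared within their family. Endothelial markers rose at 2 of 21, *Stab2*, the hyaluronan scavenger of sinusoids (21.1, 22.4, 23.7 and 29.8 CPM on chow and 33.0, 36.1, 36.3 and 33.1 CPM on HFD; log2 change 0.52, SE 0.12, limma-voom adjusted p = 0.0106), and *Vwf* (1.91 to 4.90 CPM on chow and 6.44 to 8.75 CPM on HFD). At 9.52% the share of endothelial markers that passed was near the 9.2% of all genes. The endothelial calls became 0 higher and 0 lower without HFD 1 and HFD 3. *Clec4g* (14.3 to 20.5 CPM on chow and 13.7 to 20.9 CPM on HFD) and *Pecam1* (23.8 to 36.9 CPM on chow and 22.7 to 29.6 CPM on HFD) did not pass. Of 5 cholangiocyte markers tested none passed. The untested *Krt19* was at 0.261 to 8.92 CPM on chow and 0.163 to 1.07 CPM on HFD. *Epcam* (0 to 10.1 CPM on chow and 0 to 2.91 CPM on HFD) and *Cldn7* (0.237 to 6.49 CPM on chow and 0.163 to 1.07 CPM on HFD), also untested and named after their values were seen, reached their highest level on chow too. *Krt7*, untested as well, did not (0.205 to 1.02 CPM on chow and 0.327 to 2.01 CPM on HFD). Of erythroid genes 0 of 5 passed, but the haemoglobins stood higher in the mean, with *Hba-a1* at 42.3 to 139.7 CPM on chow and 147 to 294 CPM on HFD and *Hbb-bs* at 54.6 to 112 CPM on chow and 132 to 233 CPM on HFD (log2 changes 1.42 and 1.34; limma-voom adjusted p = 0.0854 and 0.0893). The part of blood in the liver in other results was not tested. Of pancreas, mesothelium and gut genes 3 were tested and 1, *Fabp2*, passed. The pancreatic genes *Cpa1*, *Cela3b*, *Prss2* and *Ctrb1* were at 0 throughout. The gut genes *Reg3g* (0, 0, 19.5 and 0.947 CPM on chow and 0.144, 0, 0 and 0 CPM on HFD) and *Krt20* (0, 0, 9.74 and 0.710 CPM on chow and 0.288, 0, 0.153 and 0 CPM on HFD), named after their values were seen, stood out in Chow 3.

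The diet was also compared in the 8 libraries of the siRNA-injected mice, which the saline comparison did not use, although the fit shares its estimate of the spread. There 351 genes passed (3.1%), and of the 1042 genes of the saline mice 985 (94.5%) had the same sign, against 69.8% of all genes tested. Of the 1042, 205 passed in both with the same sign, which is 19.7% of the saline and 58.4% of the siRNA calls. Without the library HFD/FGFR4 KD 1, 635 genes passed in the siRNA mice, 332 of them shared in sign and call, and 94.8% of the saline genes had the same sign. Other libraries left out lowered the siRNA count to 85 (without HFD/FGFR4 KD 4), 120 (without HFD/FGFR4 KD 2), 147 (without Chow/FGFR4 KD 2 or Chow/FGFR4 KD 4), 153 (without HFD/FGFR4 KD 3) and 214 (without Chow/FGFR4 KD 1). The log2 changes, siRNA beside saline, were 2.52 and 3.10 for *Gpc1*, 2.51 and 4.12 for *Apoa4*, -1.79 and -2.42 for *Ces2a*, and -1.60 and -2.80 for *Elovl3*, all called in both. Others called in both were *Dbp* (4.34 and 4.32), *Per3* (2.77 and 2.64), *Cyp3a11* (-2.15 and -2.95), *Gstp1* (-2.18 and -2.14), *Cpt1a* (0.78 and 0.82), *Fads2* (1.28 and 1.37) and *Igfbp1* (-2.32 and -2.23).

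Some genes had values nearer 0 in the siRNA mice, although the test of the difference passed for none of those listed here. *Igfbp2* had a log2 change of -0.06 there and -1.56 with saline, *Ugp2* one of 0.17 and 0.77, *Csf1r* one of 0.50 and 1.08, *Usp18* one of 0.05 and 1.35, and *Abcb11* one of 0.06 and -0.68. List medians, siRNA beside saline, were -1.37 and -2.06 for male-biased genes, 0.15 and 0.29 for mitochondrial oxidation, -0.26 and -0.41 for ribosomal proteins, 0.51 and 0.96 for Kupffer cell markers, 0.21 and 0.43 for interferon-stimulated genes and 0.28 and 0.84 for matrix. A difference between the diet changes was itself tested for every gene, and 1 of 11324 (0.00883%) passed. It was *Tm7sf2*, which fell with saline (-0.58) and rose with the siRNA (0.33; log2 difference 0.91), while 765 genes had an unadjusted p under 0.05. For the genes named here other than *Tm7sf2*, a different response to diet in the siRNA mice was therefore not shown.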

How the data were processed

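RNA from the livers of 16 mice was sequenced, 1 library a mouse. The deposited table holds estimated counts per gene that, per the labels and the study's methods, the authors made by trimming reads with fastp, aligning them with kallisto to the mouse transcriptome (GRCm38) and summing transcripts to genes with tximport. Versions and the transcriptome release are not given in the sources used here. The labels name a KAPA mRNA HyperPrep kit and the study's methods a targeted HTG EdgeSeq assay, so the library type is uncertain. The table has 52143 genes, of which 27199 were 0 in all libraries, and 98.3% of identifiers matched a gene symbol. Coordinates are those of GRCm38 in the GENCODE annotation, whose transcripts also gave the shared words, and the promoter sequences are RefSeq's.

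Groups came from the sample labels. A gene was dropped when more than 4 of the 16 libraries had it under 1 CPM, and 11324 genes were tested. A gene low on chow could thus be dropped although it was higher on HFD, as *Cidea*, *Lgals3* and *Clec7a* were. After TMM scaling the counts were fitted with limma-voom (limma 3.58.1, edgeR 4.0.16, R 4.3.3), with a mean for each of the 4 groups and 1 spread for all 16 libraries. P-values are two-sided and adjusted by Benjamini and Hochberg over all tested genes, with 0.05 as the threshold. They measure the spread between mice, and intervals of counts would cover counting error only. A level of 0 in a library allows up to 3 counts. The study's methods call genes at p under 0.05 and an adjusted p under 0.25, and counts at that threshold are given beside the main ones where named. Shared words are the percent of the 31-base sequences of a gene's transcripts that also occur in another gene. On simulated counts with 200 genes changed 2-fold in HFD against Chow, 58% were recovered and 4.92% of calls were false. There 0 genes were called where nothing was changed. The simulation gave all libraries a shared mean profile and all genes the same dispersion. It held neither the HFD pairs nor the diet difference in TMM factors, so its rates need not hold for the real libraries.

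The genes, lists and cell type markers (57 lists of 1233 genes) were chosen with earlier results of these data known, so their direction is not independent evidence. Genes named are the 4 markers of the comparison. Added to them are, for each direction, the 15 genes of lowest p that passed, did not overlap between diets and had a mean of at least 5 CPM, without predicted genes. From each list up to 6 called genes a direction and up to 4 uncalled genes of highest level were named, and defining cell type markers were named whatever their p. Some genes that the rule picks are not reported here, but they remain in the counts and medians of their lists. The comparisons were repeated with DESeq2 1.42.0 and with the quasi-likelihood test of edgeR (both on rounded counts), with other scalings and filters, with quality weights, with a replicate block and without single libraries. Leaving out HFD 1 and 3, or HFD 2 and 4, was added after seeing the data. No cage, day or batch was named in the labels, so none could be fitted.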

Additional observations from a re-analysis of the deposited data

Results flagged for a closer look

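In 92 groups of 4 values, 1 library stood apart from a close group of the other three in 5 cases, by the gap to its nearest neighbour relative to the whole range. Chance alone gives about 1 in 20, or 4.6 of 92. Library HFD 4 had the lowest total count of its group (4575975, against 5824476 to 5976449 in the other HFD libraries). It was also the lowest for 2 genes, with *Agxt2* at 170.01 CPM against 192 to 194 CPM in the other HFD libraries, and *Rpl22l1* at 10.5 CPM against 13.5 to 13.6 CPM. Both calls are given in the report with this library included, and neither was lost without it. The summed Kupffer cell and resident macrophage markers were 403 CPM in HFD 2 and 269 to 274 CPM in the other HFD libraries. The summed markers of dendritic cells and MHC class II were 146 CPM in Chow 4 and 105 to 112 CPM in the other chow libraries. A test of the difference between diet changes picked *Tm7sf2*, a sterol reductase of cholesterol synthesis, whose log2 change was 0.91 higher in the siRNA mice than in the saline mice (limma-voom adjusted p = 0.00254), with -0.58 on saline and 0.33 with the siRNA.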

How the results depend on the processing

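The count of 1042 genes changed by diet in the saline mice stayed within 1.5 times under edgeR (1050), DESeq2 (1160), DESeq2 size factors (1048), upper quartile scaling (1014), removal of Gm42418 and *Lars2* before scaling (1058), a looser filter that asked for 1 CPM in 4 or more libraries (1074), omission of the filter (976), library quality weights (1349), only the 8 libraries compared (859), omission of HFD/FGFR4 KD 1 (1133) and omission of HFD 2 and 4 (1188, 758 of them shared with the 1042). It moved to 2340 with library totals only (2166 higher and 174 lower) and to 2939 at the study's threshold. Without HFD 1 and 3 it moved to 247 (217 of them shared). It also moved to 608 without Chow 1, 628 without Chow 2, 689 without HFD 1 and 597 without HFD 3. It stayed within 1.5 times without Chow 3 (1048), Chow 4 (716), HFD 2 (1197) or HFD 4 (921). A fit without libraries has fewer samples, and apart from that the cause of these moves was not tested. In the siRNA mice the count of 351 became 606 with DESeq2, 228 with no filter, 2293 at the study's threshold and between 85 and 635 without single libraries. The 1 gene whose diet change differed became 2 with edgeR, 7 with DESeq2, 4 at the study's threshold, 1 to 2 without single libraries and 0 in limma-voom with library totals only, where 761 genes had an unadjusted p under 0.05. *Tubb2a*, a tubulin, turned from an uncalled log2 change of 0.14 to -1.01 (limma-voom adjusted p = 0.0215) without HFD 1 and 3. Of the 458 named genes, calls were lost by 142 without HFD 1 and 3, by 38 without HFD 2 and 4, by 42 with library totals and by 12 (HFD 2) to 73 (Chow 1) without single libraries.

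The labels give the groups the same replicate numbers without saying what a number shares. Deviations of same-numbered HFD and chow libraries from their group means correlated at -0.0707, 0.12, 0.112 and -0.0668 across genes, so the numbers were not taken as pairs. With a replicate block 1005 genes passed in the saline mice (913 shared with the 1042), 306 in the siRNA mice and 1 for the difference, and 13 of the named genes lost their call. Depth limits the low genes: at 4575975 to 5976449 counts a library, markers of neutrophils and of T and NK cells and most of recruited macrophages could not be tested. The filter counted all 16 libraries, so it also left out some genes near 0 on chow that were higher on HFD, *Cidea* among them.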
